A study of Mus musculus with 22 samples.

Results

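Gene expression was compared between 4 β-catenin tumours and 3 p53 tumours of mouse liver, 7 of the 22 tumours of the series, none of which carried the model antigen. They were chosen by label: every tumour of the first set (12 tumours, 1 deposited table) whose genotype label combines MYC with luciferase alone (luc) and with β-catenin or p53. All 7 were raised in C57BL/6 mice, the strain common to the series, with hydrodynamic injection into the tail vein. The method presses plasmids in a large volume of fluid into the blood, and hepatocytes take some of them up. The β-catenin tumours are labelled MYC, luc and bcat, the p53 tumours MYC, luc and p53, so both labels share MYC and luc and differ in the other driver. None had been treated. Age, sex and time after injection are not given in the labels. Nor do these tell whether every tumour is from a separate mouse, so p-values measure the spread between tumour samples, which may be technical. The remaining tumours of set 1 carried lucOS, luciferase joined to antigen peptides for T cells, with β-catenin (2 tumours) or p53 (3 tumours), and set 2 held 3 lucOS β-catenin and 4 lucOS p53 tumours that are used here for values set side by side. Set 2 also held 3 luc β-catenin tumours but no luc p53 tumour, and its p53 tumours are labelled sgp53, while the labels of set 1 do not say how p53 was altered. Its table was scaled on its own, so values are compared within a set only.

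β-Catenin is the signal carrier of the Wnt pathway. Without Wnt it is bound by a complex of Axin, APC and kinases and destroyed, and when stabilised it enters the nucleus and activates genes together with TCF and LEF proteins. In the liver the pathway is active around the central vein, where it sets the pericentral programme of glutamine synthesis and of drug and bile acid metabolism, while hepatocytes near the portal vein use more amino acids for glucose and urea. p53, encoded by Trp53, arrests or kills damaged cells, and hepatocellular tumours of people often carry a mutation in one or the other of the corresponding genes.

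The values are the authors' signal per gene, reads divided by 1 factor per tumour, and are called values below. They are not divided by gene length, so they are compared between tumours and not between genes. Reads over all genes numbered 40.941 M to 50.65 M in the β-catenin tumours and 36.026 M to 54.873 M in the p53 tumours, and 3 reads, the limit that a count of 0 allows, serve as the floor below (counting error only). Rn45s, a ribosomal RNA precursor gene, held 8.899% of the reads of p53 tumour 1, the highest share among the 12. The fit was made in limma on log2 of each value after adding 1, and every difference below is β-catenin minus p53 on that scale with its standard error. A gene was called, or said to have risen or fallen, at a Benjamini-Hochberg adjusted p under 0.05. A gene was tested, and is called a kept gene, if 2 or more of the 12 tumours of set 1 had at least 10 for it. Of 16108 genes tested, 956 (5.93%) were higher and 1475 (9.16%) lower in β-catenin tumours. The groups did not overlap for 2390 of these 2431 genes, nor for 5496 genes in all. The median difference of all genes was -0.20, and after TMM scaling, which fits the scale factors to the bulk of the genes, it was -0.01. That scaling gave 1227 higher and 679 lower genes, and centring each tumour on its own median gave 1068 higher and 900 lower. Small differences, of the size of that median, therefore depend on the scaling. Leaving out p53 tumour 1 gave 812 calls, p53 tumour 2 gave 982, β-catenin tumour 3 gave 1208 and β-catenin tumour 2 gave 1604. With each tumour left out in turn 365 genes stayed called higher and 279 lower, and a call that is lost when a tumour is left out, or under TMM, is given below with the adjusted p that then applied. Where more than 3 tumours end a call, their number is given with the highest such p. In bulk tumours fewer cells of a type and less RNA per cell cannot be told apart.

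Hepatocyte and other markers were checked against the label. Alb, the hepatocyte gene for albumin, lay between 447750 and 555044 in β-catenin tumours and between 105915 and 313384 in p53 tumours. Alb itself was higher in β-catenin tumours (log2 1.58 ± 0.38, adjusted p = 0.021), a call lost with p53 tumour 2 at adjusted p = 0.095 or p53 tumour 3 at adjusted p = 0.0638 left out. The part of hepatocyte content in the differences of other hepatocyte genes was not tested. The 12 acinar pancreas genes summed to 260.3 to 1344 in β-catenin tumours and 282 to 456 in p53 tumours, with 3 of them at 0 in every tumour. The 23 neural genes summed to 204 to 284 in β-catenin tumours and 178 to 722 in p53 tumours.

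The promoters of Wnt feedback and pericentral genes were searched for the core of the TCF and LEF binding motif, written CTTTGAT or CTTTGAA, on both strands. RefSeq promoter sequence (GRCm38.p6, the 250 bases before and 50 bases from the transcription start) was matched for 17 of the 29 genes of these lists, giving 23 promoters. Either form was found in 6 of them (26.1%), against 8.65% of 32851 promoters of all genes, 8.61% of the promoters of genes that rose and 4.84% of those of genes that fell. CTTTGAT was found in 4 (17.4%, against 3.73% of all) and CTTTGAA in 2 (8.70%, against 5.14%). The 5 promoters printed here belong to genes that rose in β-catenin tumours and whose values follow, and the capitals mark the match, which reads ATCAAAG or TTCAAAG where the motif lies on the other strand. A match is a run of letters, and binding was not measured.
Sp5 (chr2:70474673-70474972, plus strand, match 104 bases before the start): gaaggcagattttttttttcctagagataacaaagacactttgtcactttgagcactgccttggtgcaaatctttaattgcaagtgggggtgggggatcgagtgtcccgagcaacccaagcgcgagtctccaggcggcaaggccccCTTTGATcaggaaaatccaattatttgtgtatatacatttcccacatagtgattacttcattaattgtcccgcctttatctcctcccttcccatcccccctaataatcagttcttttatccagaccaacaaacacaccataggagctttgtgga
Slc1a2 (chr2:102706188-102706487, plus strand, match 207 bases before the start): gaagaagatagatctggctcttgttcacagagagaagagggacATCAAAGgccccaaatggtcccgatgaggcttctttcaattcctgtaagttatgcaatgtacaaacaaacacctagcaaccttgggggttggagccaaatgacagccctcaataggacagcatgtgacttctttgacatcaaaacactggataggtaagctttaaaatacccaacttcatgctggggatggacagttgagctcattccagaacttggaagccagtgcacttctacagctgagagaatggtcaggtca
Lect2 (chr13:56548489-56548788, minus strand, match 32 bases before the start): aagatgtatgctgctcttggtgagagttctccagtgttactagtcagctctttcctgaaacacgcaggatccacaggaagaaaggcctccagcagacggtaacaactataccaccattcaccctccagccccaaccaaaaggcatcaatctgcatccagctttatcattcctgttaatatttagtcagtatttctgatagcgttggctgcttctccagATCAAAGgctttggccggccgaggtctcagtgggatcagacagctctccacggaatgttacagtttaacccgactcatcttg
Cyp2e1 (chr7:140763569-140763868, plus strand, match 135 bases before the start): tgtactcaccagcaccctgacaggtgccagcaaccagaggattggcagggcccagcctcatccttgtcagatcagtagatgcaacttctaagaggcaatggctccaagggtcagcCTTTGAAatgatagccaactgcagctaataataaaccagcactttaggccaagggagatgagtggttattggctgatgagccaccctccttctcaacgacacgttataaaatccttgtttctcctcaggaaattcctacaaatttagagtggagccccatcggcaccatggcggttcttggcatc
Cyp1a2 (chr9:57683606-57683905, minus strand, match 244 bases before the start): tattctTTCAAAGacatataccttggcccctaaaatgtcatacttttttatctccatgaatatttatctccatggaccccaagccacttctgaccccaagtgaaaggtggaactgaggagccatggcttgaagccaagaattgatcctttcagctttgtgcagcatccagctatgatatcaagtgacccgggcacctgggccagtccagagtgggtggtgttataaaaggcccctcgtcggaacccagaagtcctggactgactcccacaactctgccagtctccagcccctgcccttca
The sixth gene with a match was Tnfrsf19, a receptor of the TNF family, with 1171, 511, 1040.1 and 569 in β-catenin tumours, against 262, 343 and 238 in p53 tumours. Its groups did not overlap, and the call (log2 1.47 ± 0.42, adjusted p = 0.0391) was lost with any of 6 tumours left out, p53 tumour 1 giving the highest adjusted p = 0.113.

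The Wnt feedback genes that were called were higher in every β-catenin tumour than in any p53 tumour, several of them with p53 values near 0. Among the Wnt feedback genes 9 of 15 kept genes rose and 0 fell, with a median difference of 2.70, and 7 were called with each tumour left out. Axin2, the scaffold of the complex that destroys β-catenin (chromosome 11, 108917828 to 108950783, GRCm38.p6), had 3586, 1074, 2643 and 1065 in β-catenin tumours, against 12.2, 19.3 and 14.6 in p53 tumours. Tumours 1 and 3 were the highest of the β-catenin group and the p53 tumours lay close together (log2 6.82 ± 0.55, adjusted p = 0.000124). Lgr5, the receptor for R-spondins (chromosome 10, 115450314 to 115587780), had 1487, 390.0, 1454 and 741 in β-catenin tumours, against 5.43, 20.4 and 6.92 in p53 tumours. The same 2 β-catenin tumours were highest, and no p53 tumour came near the lowest of them (log2 6.43 ± 0.66, adjusted p = 0.000347). The transcription factor gene Sp5 (chromosome 2, 70474923 to 70477726) had 218, 115, 147 and 60.1 in β-catenin tumours, against 0, 0 and 0 in p53 tumours. Since no read was found in any p53 tumour, its mean was at least 41.4-fold higher against a floor of 3 reads per library.

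Nkd1, an inhibitor that binds Dishevelled, had 616, 598, 159 and 544 in β-catenin tumours, against 8.15, 27.2 and 32.3 in p53 tumours. It was lower in β-catenin tumour 3 than in the other 3 but still above each p53 tumour (log2 4.37 ± 0.74, adjusted p = 0.00514). Tbx3, a T-box repressor, had 4804, 4637, 4768 and 1811 in β-catenin tumours, against 151, 87.4 and 136 in p53 tumours. Tcf7, which encodes a nuclear partner of β-catenin and is also made by T cells, had 1268, 484, 521 and 747 in β-catenin tumours, against 76.0, 166 and 111 in p53 tumours. Both sets of values were well apart (Tbx3 log2 4.93 ± 0.57, adjusted p = 0.000742; Tcf7 log2 2.63 ± 0.49, adjusted p = 0.00793). Notum, which removes the lipid from Wnt proteins, had 12165, 3371, 3320.0 and 2479.7 in β-catenin tumours, against 12.2, 7.94 and 17.7 in p53 tumours, with β-catenin tumour 1 far above the rest (log2 8.36 ± 0.68, adjusted p = 0.000124). Rnf43, a ubiquitin ligase that clears Wnt receptors, had 4831, 729, 1611 and 774 in β-catenin tumours, against 285, 146 and 80.7 in p53 tumours. Tumour 1 was again highest, and the call (log2 3.26 ± 0.87, adjusted p = 0.0312) was lost with any of 5 tumours left out, p53 tumour 3 giving the highest adjusted p = 0.0916. Its relative Znrf3 had 4431, 1291, 2108 and 1571 in β-catenin tumours, against 1543, 1475 and 1615 in p53 tumours, where p53 tumours lay within the β-catenin range (log2 0.43 ± 0.38, adjusted p = 0.456, not called). Ccnd1, cyclin D1, had 19055, 1804, 1019.5 and 10124 in β-catenin tumours, against 512, 666 and 869 in p53 tumours. Tumours 1 and 4 of the β-catenin group carried most of it, and it was not called (log2 2.70 ± 0.97, adjusted p = 0.0797).

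Genes upstream of β-catenin were counted beside the shares of all genes tested, 5.93% higher and 9.16% lower. Of ligands, receptors and co-receptors 2 of 19 kept genes rose (0 leaving out β-catenin tumour 1 or 3 or p53 tumour 1 or 2, 1 leaving out β-catenin tumour 2 or 4 or p53 tumour 3) and 0 fell. The co-receptor gene Lrp5 had 11726, 6444, 10184 and 5410.4 in β-catenin tumours, against 2202, 2529 and 2264 in p53 tumours, without overlap (log2 1.79 ± 0.49, adjusted p = 0.0329). The call of Lrp5 was lost with any of 6 tumours left out, p53 tumour 1 giving the highest adjusted p = 0.101. Wnt2, a ligand made by endothelium, had 21.5, 11.1, 15.2 and 46.2 in β-catenin tumours, against 1.36, 1.13 and 6.15 in p53 tumours, all low values (log2 2.69 ± 0.76, adjusted p = 0.0375). The call of Wnt2 was lost with any of 5 tumours left out, p53 tumour 1 giving the highest adjusted p = 0.121. The other co-receptor gene, Lrp6, had 4181, 3372, 3741 and 3778 in β-catenin tumours, against 5145, 5286 and 5809.9 in p53 tumours, which also did not overlap but missed the threshold (log2 -0.52 ± 0.16, adjusted p = 0.0527). Ctnnb1 itself had 19747, 15489, 22134 and 16289 in β-catenin tumours, against 25003, 29241 and 22214 in p53 tumours. All 4 β-catenin tumours were below the lowest p53 tumour, and the gene was not called (log2 -0.47 ± 0.18, adjusted p = 0.101). The labels do not give the sequence of the injected construct, so reads of it need not all be counted here.

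Of the 73 gene lists, the pericentral genes had the highest share of members that rose. Of pericentral genes 14 of 16 kept genes rose and 0 fell, with a median of 4.36, and 12 stayed called with each tumour left out. Axin2 and Tbx3 are on both this list and the Wnt feedback list. Cyp2e1, which oxidises ethanol and paracetamol (chromosome 7, 140763819 to 140774990), had 134707, 80758, 169915 and 98699.7 in β-catenin tumours, against 391, 1178 and 1292 in p53 tumours. Its lowest β-catenin value was far above its highest p53 value (log2 7.11 ± 0.40, adjusted p = 1.1e-05). Cyp1a2, a caffeine and arylamine oxidase, had 19943, 5034, 5471 and 6755 in β-catenin tumours, against 10.9, 2.27 and 182 in p53 tumours, with β-catenin tumour 1 highest and p53 tumour 3 above the other p53 tumours (log2 8.67 ± 1.16, adjusted p = 0.00157). Slc1a2, a glutamate transporter, had 11430.3, 7386, 7412 and 9834 in β-catenin tumours, against 95.1, 78.3 and 16.1 in p53 tumours (log2 7.45 ± 0.94, adjusted p = 0.00103). Lect2, a secreted hepatocyte protein, had 7128, 2613, 4010.2 and 3098 in β-catenin tumours, against 20.4, 52.2 and 83.0 in p53 tumours (log2 6.42 ± 0.82, adjusted p = 0.0011). In both, the p53 tumours differed among themselves by several-fold and none approached the β-catenin group.

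Genes of ammonia and glutamine handling rose as well. Glul, glutamine synthetase (chromosome 1, 153899929 to 153909723), had 150109.9, 58183, 146806 and 72833 in β-catenin tumours, against 5823, 7802 and 7959.7 in p53 tumours. Tumours 1 and 3 stood above tumours 2 and 4, and the p53 tumours were uniform (log2 3.79 ± 0.46, adjusted p = 0.000917). Oat, ornithine aminotransferase, had 38266, 25992, 54279 and 25902 in β-catenin tumours, against 2773, 2746 and 2079 in p53 tumours (log2 3.78 ± 0.51, adjusted p = 0.00157). Rhbg, an ammonium transporter, had 944, 1166, 356 and 1406 in β-catenin tumours, against 4.07, 6.81 and 9.22 in p53 tumours, near 0 in all p53 tumours (log2 6.87 ± 0.72, adjusted p = 0.000393). Gulo, the last enzyme of vitamin C synthesis, had 45759.7, 28398, 38795 and 22794 in β-catenin tumours, against 57.0, 145 and 209.8 in p53 tumours (log2 8.08 ± 0.79, adjusted p = 0.000287). Of these, Rhbg was lowest in β-catenin tumour 3, where Glul and Oat were among the highest. Rgn, regucalcin, had 18467, 19559.5, 22010.3 and 27518 in β-catenin tumours, against 8766, 1925 and 7154 in p53 tumours; its call (log2 2.13 ± 0.60, adjusted p = 0.0382) was lost with any of 7 tumours left out, p53 tumour 2 giving the highest adjusted p = 0.133. The 2 uncalled pericentral genes were Cyp7a1, with 4570.1, 12328, 24066 and 13121 in β-catenin tumours, against 1583, 884 and 2969.9 in p53 tumours (log2 2.84 ± 1.27, adjusted p = 0.146), and the amino acid transporter gene Slc1a4, with 3982, 2060.2, 1193 and 2224 in β-catenin tumours, against 1830.4, 1366 and 876 in p53 tumours (log2 0.73 ± 0.48, adjusted p = 0.319). Cyp7a1 did not overlap between the groups, Slc1a4 did.

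**Figure D1:**
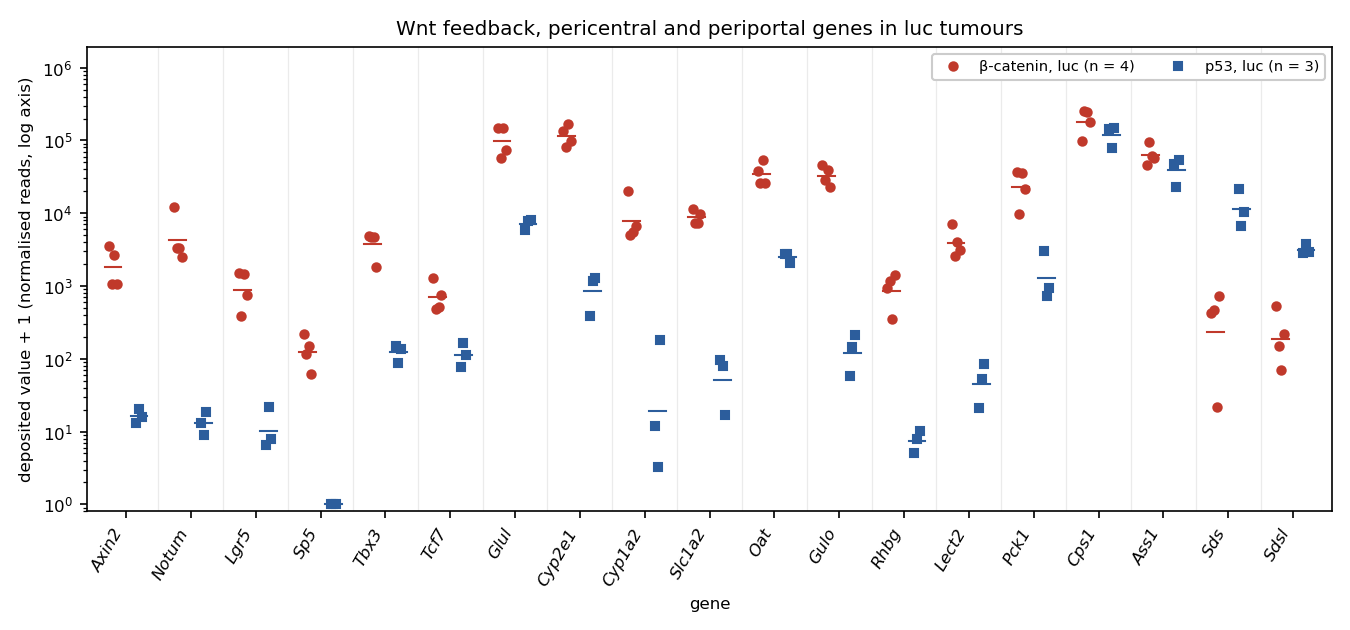
Values plus 1 of 19 Wnt feedback, pericentral and periportal genes on a log axis, 1 red circle per β-catenin luc tumour (n = 4) and 1 blue square per p53 luc tumour (n = 3), with a line at each group's mean of log2 values. The red circles lie above the blue squares for every gene from Axin2 to Lect2 and for Pck1, overlap with them for Cps1 and Ass1, and lie below them for Sds and Sdsl.

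Portal-side genes did not move as a block, read against the shares of all genes tested, 5.93% higher and 9.16% lower. Of periportal genes 1 of 16 kept genes rose and 3 fell, and of the urea cycle genes 0 of 9 kept genes rose and 0 fell in limma, against 3 at an unadjusted p under 0.05, 0 called in edgeR and 2 in DESeq2. Sds, serine dehydratase, had 423, 467, 20.6 and 730.1 in β-catenin tumours, against 21598, 6741 and 10348 in p53 tumours. β-Catenin tumour 3 was by far the lowest, and all 4 were below every p53 tumour (log2 -5.60 ± 1.11, adjusted p = 0.00996). Its relative Sdsl had 535, 148, 68.9 and 219 in β-catenin tumours, against 2828, 3731 and 2934 in p53 tumours, tumour 3 again being the lowest (log2 -4.07 ± 0.54, adjusted p = 0.0015). Hsd17b13, a lipid droplet enzyme, had 5692, 8206, 2265 and 10632 in β-catenin tumours, against 23129, 15291 and 16124 in p53 tumours (log2 -1.63 ± 0.46, adjusted p = 0.0373), a call lost with any of 5 tumours left out, p53 tumour 1 giving the highest adjusted p = 0.128, and under TMM at adjusted p = 0.0645. In the other direction Pck1, the first committed enzyme of glucose synthesis, had 37285, 9752, 35133 and 21765 in β-catenin tumours, against 2994, 732 and 937 in p53 tumours. The groups were apart, and the call (log2 4.17 ± 0.89, adjusted p = 0.0133) was lost with p53 tumour 2 at adjusted p = 0.0546 left out. Cps1, which fixes ammonia for the urea cycle, had 97127, 257628, 242427 and 180083 in β-catenin tumours, against 144525, 79652 and 149556 in p53 tumours, overlapping (log2 0.60 ± 0.58, adjusted p = 0.5). Ass1, a later step, had 45564, 93698, 61876 and 56520.0 in β-catenin tumours, against 47547, 22728 and 53275 in p53 tumours, also overlapping (log2 0.69 ± 0.50, adjusted p = 0.365). Among periportal genes with wide spread, Gldc of the glycine cleavage system had 15997, 2941, 136 and 1326 in β-catenin tumours, against 9847, 6307 and 17573 in p53 tumours (log2 -2.59 ± 1.31, adjusted p = 0.196, not called), with β-catenin tumour 3 the lowest and tumour 1 inside the p53 range. Aldh1b1, a mitochondrial aldehyde dehydrogenase, had 971, 18167, 2418 and 18644 in β-catenin tumours, against 47526, 18918 and 56805 in p53 tumours, with β-catenin tumours 1 and 3 far below tumours 2 and 4 (log2 -2.80 ± 0.93, adjusted p = 0.0634, not called).

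Genes for the breakdown of amino acids and for glucose synthesis rose in part. Of that list 8 of 27 kept genes rose (3 leaving out p53 tumour 2, 4 leaving out β-catenin tumour 3 or p53 tumour 1) and 2 fell. Fbp1, fructose bisphosphatase, had 14289, 9659, 20468 and 11075 in β-catenin tumours, against 136, 327 and 1935 in p53 tumours. Tat, tyrosine aminotransferase, had 35436, 20618, 68632 and 19588 in β-catenin tumours, against 2629, 4073 and 2186 in p53 tumours. Neither overlapped, and p53 tumour 3 held the most Fbp1 of the p53 group (Fbp1 log2 4.91 ± 0.87, adjusted p = 0.00647; Tat log2 3.46 ± 0.67, adjusted p = 0.00918). Tdo2, which opens the tryptophan ring, had 16565, 34961, 32676 and 21623 in β-catenin tumours, against 225, 1532 and 8247 in p53 tumours, where p53 tumours spread widely (log2 4.15 ± 1.15, adjusted p = 0.035). The call of Tdo2 was lost with any of 6 tumours left out, p53 tumour 1 giving the highest adjusted p = 0.13. Dao, D-amino acid oxidase (chromosome 5, 113999635 to 114025675), had 0, 0, 0 and 0.924 in β-catenin tumours, against 158, 295 and 442 in p53 tumours. A single read was found in the β-catenin tumours together, against 951 in the p53 tumours, a ratio of 1386 (95% interval 248 to 54794, counting error only) higher in p53 tumours. Gatm, which makes the creatine precursor, had 162, 125, 167 and 221 in β-catenin tumours, against 1692, 1712 and 3555 in p53 tumours, also lower in every β-catenin tumour (log2 -3.71 ± 0.42, adjusted p = 0.000622).

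Cytochrome P450 genes for foreign compounds and steroids rose in number. Of P450 genes 19 of 37 kept genes rose and 0 fell, with a median of 2.61, and 15 stayed called with each tumour left out. Cyp2a5, a coumarin hydroxylase, had 40645, 32915, 99762 and 22271 in β-catenin tumours, against 379, 299.6 and 228 in p53 tumours (log2 7.13 ± 0.66, adjusted p = 0.000181). Its near-copy Cyp2a4 had 843, 797, 1033 and 3966 in β-catenin tumours, against 2.72, 14.8 and 45.3 in p53 tumours (log2 6.53 ± 1.42, adjusted p = 0.0142, lost with p53 tumour 1 at adjusted p = 0.0655 left out), and reads of the pair may be split between them. Cyp2c29 had 2899.8, 4423, 4247 and 7325 in β-catenin tumours, against 46.2, 62.4 and 530.3 in p53 tumours (log2 5.26 ± 0.78, adjusted p = 0.00267), Cyp2c50 had 1147, 1808, 266 and 2889 in β-catenin tumours, against 5.43, 7.94 and 51.5 in p53 tumours (log2 6.28 ± 1.04, adjusted p = 0.0047), both arachidonic acid and drug oxidases of a large gene cluster. In Cyp2c50, β-catenin tumour 3 was the lowest of its group, as it was for Cyp2b9, a P450 higher in female liver, with 360.3, 515, 95.8 and 1262 in β-catenin tumours, against 0, 0 and 15.4 in p53 tumours (log2 7.26 ± 1.33, adjusted p = 0.00725). Cyp2b10, the usual reporter of the receptor CAR, had 37.4, 143, 70.7 and 167 in β-catenin tumours, against 100.5, 288 and 556 in p53 tumours, overlapping and not called (log2 -1.49 ± 1.40, adjusted p = 0.487).

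Genes for the conjugation, transport and hydrolysis of drugs rose in part. Of glutathione, glucuronide and sulfate conjugation genes 14 of 35 kept genes rose (9 leaving out p53 tumour 2) and 1 fell (Sult1c2), of hepatocyte transporters 14 of 25 kept genes rose (7 leaving out β-catenin tumour 3, 8 leaving out p53 tumour 1, 2 or 3) and 0 fell, and of carboxylesterases 10 of 13 kept genes rose (5 leaving out p53 tumour 2) and 0 fell, the last with a median of 3.99. Ces1f, which hydrolyses lipid esters, had 6939.5, 2521, 9027 and 2787 in β-catenin tumours, against 1.36, 0 and 19.98 in p53 tumours (log2 10.29 ± 0.91, adjusted p = 0.000144). Ces1b had 5771, 3026, 7352 and 3075 in β-catenin tumours, against 88.3, 44.3 and 77.6 in p53 tumours (log2 6.03 ± 0.60, adjusted p = 0.000309). Ces2c had 1265, 480.5, 1446 and 519 in β-catenin tumours, against 21.7, 24.96 and 16.1 in p53 tumours (log2 5.25 ± 0.69, adjusted p = 0.00144). The carboxylesterase genes are close copies in a row on chromosome 8, so their separate values are uncertain, and in all 3 the β-catenin tumours 1 and 3 were highest. Ugt1a1, which conjugates bilirubin, had 44543, 24799, 32898 and 27197 in β-catenin tumours, against 5159.9, 6141 and 6838 in p53 tumours (log2 2.39 ± 0.30, adjusted p = 0.00108). Ugt3a2 had 1793, 1396, 3053 and 2649.7 in β-catenin tumours, against 8.15, 27.2 and 63.0 in p53 tumours (log2 6.38 ± 0.56, adjusted p = 0.000144). Every β-catenin tumour was above every p53 tumour for both, and Ugt3a2 was low in p53 tumours. Gstp1, a glutathione transferase, had 12013, 12100.3, 16374 and 11253 in β-catenin tumours, against 10791, 5068 and 15066 in p53 tumours, which overlapped (log2 0.45 ± 0.39, adjusted p = 0.451).

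Among the transporters, Slc22a3, an organic cation carrier (chromosome 17, 12419972 to 12507704), had 626, 287, 457 and 289 in β-catenin tumours, against 1.36, 0 and 3.84 in p53 tumours (log2 7.45 ± 0.61, adjusted p = 0.000124). Slco1b2, an organic anion carrier, had 21097, 23602, 50721 and 25053 in β-catenin tumours, against 1132, 793 and 3840.0 in p53 tumours (log2 4.22 ± 0.75, adjusted p = 0.00648). Each was higher in all 4 β-catenin tumours, and Slc22a3 was near 0 in p53 tumours. Abcg2, an efflux pump, had 1954, 2467, 3147 and 2623 in β-catenin tumours, against 873, 928 and 1188 in p53 tumours, a smaller difference with little spread (log2 1.35 ± 0.26, adjusted p = 0.00884). Slc22a7, a carrier of organic anions, had 126, 102, 13.4 and 382 in β-catenin tumours, against 1052, 81.7 and 1296 in p53 tumours, with p53 tumour 2 inside the β-catenin range (log2 -2.39 ± 1.29, adjusted p = 0.224, not called). The bile salt importer gene Slc10a1 had 9323, 4672, 3022 and 6625 in β-catenin tumours, against 3559, 1020.1 and 5482 in p53 tumours, overlapping as well (log2 1.003 ± 0.66, adjusted p = 0.319).

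Many fatty acid oxidation genes controlled by the receptor PPARα rose. Of PPARα target genes 19 of 29 kept genes rose and 0 fell, with a median of 1.77, and 14 stayed called with each tumour left out, while Ppara itself had 12201, 7464, 8531 and 7679 in β-catenin tumours, against 6458, 3511 and 5909.8 in p53 tumours (log2 0.78 ± 0.37, adjusted p = 0.164, not called). Cyp4a14 had 7267, 10589.7, 19294 and 14596 in β-catenin tumours, against 5.43, 7.94 and 58.4 in p53 tumours (log2 9.65 ± 1.18, adjusted p = 0.000917). Cyp4a10 had 3473, 3149, 4777 and 5441 in β-catenin tumours, against 1.36, 2.27 and 19.98 in p53 tumours (log2 9.56 ± 0.85, adjusted p = 0.000144), both fatty acid ω-hydroxylases and close copies of one another. p53 tumour 3 held the most of each among p53 tumours. Ehhadh, of the peroxisomal oxidation pathway, had 5403, 8622, 17277 and 8613 in β-catenin tumours, against 1569.7, 1034 and 1509 in p53 tumours (log2 2.76 ± 0.33, adjusted p = 0.000884). Tumour 3 was its highest β-catenin tumour, and no p53 tumour reached the lowest. Cpt1a, which admits fatty acids to mitochondria, had 17490.5, 23444, 24573 and 22306 in β-catenin tumours, against 10264, 7653 and 18894 in p53 tumours, where p53 tumour 3 exceeded β-catenin tumour 1 (log2 0.93 ± 0.33, adjusted p = 0.0736, not called). Pdk4, a kinase that spares glucose, had 8342, 2129, 6597 and 3252 in β-catenin tumours, against 341, 1515 and 800.1 in p53 tumours (log2 2.57 ± 0.54, adjusted p = 0.0129). The call of Pdk4 was lost with p53 tumour 1 at adjusted p = 0.0581 left out.

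Lipid synthesis moved less. Of fatty acid synthesis genes 5 of 16 kept genes rose (1 leaving out β-catenin tumour 3 or p53 tumour 1, 2 leaving out β-catenin tumour 2 or 4 or p53 tumour 2 or 3) and 1 fell, and of sterol synthesis genes 5 of 19 kept genes rose (0 leaving out β-catenin tumour 4 or p53 tumour 1 or 2, 1 leaving out β-catenin tumour 2 or 3, 2 leaving out p53 tumour 3, 11 leaving out β-catenin tumour 1) and 0 fell. Fads2, a desaturase, had 11540.2, 18657, 13084 and 14353 in β-catenin tumours, against 5379, 3156 and 5029.8 in p53 tumours (log2 1.69 ± 0.33, adjusted p = 0.00955). Fdps, of the isoprenoid branch, had 3606, 13054, 18733 and 11823 in β-catenin tumours, against 3601, 2940.1 and 3119 in p53 tumours, with tumour 1 at the level of the p53 tumours (log2 1.65 ± 0.49, adjusted p = 0.0452). The call of Fdps was lost with any of 6 tumours left out, p53 tumour 2 giving the highest adjusted p = 0.118. Scd2, a desaturase of fetal liver and brain, fell and had 27335, 32687, 32601 and 26138 in β-catenin tumours, against 82800.4, 51797 and 50031 in p53 tumours (log2 -1.02 ± 0.30, adjusted p = 0.0426, lost with any of 7 tumours left out, p53 tumour 1 giving the highest adjusted p = 0.156, and under TMM at adjusted p = 0.0938), while its relative Scd1 had 30594, 46617, 96059 and 47555 in β-catenin tumours, against 10365, 6347 and 12236 in p53 tumours (log2 2.44 ± 0.69, adjusted p = 0.0378). The call of Scd1 was lost with any of 6 tumours left out, p53 tumour 2 giving the highest adjusted p = 0.12. Fasn, fatty acid synthase, had 39815, 51733, 65189 and 47856 in β-catenin tumours, against 54175, 56811 and 69779 in p53 tumours (log2 -0.25 ± 0.35, adjusted p = 0.649). The Fasn groups overlapped. Of bile acid genes 5 of 16 kept genes rose (2 leaving out β-catenin tumour 3, 3 leaving out p53 tumour 2 or 3) and 0 fell. Cyp27a1, sterol 27-hydroxylase, had 9066, 10129.7, 16103 and 8819 in β-catenin tumours, against 454, 1558 and 1700.2 in p53 tumours (log2 3.33 ± 0.49, adjusted p = 0.0027). Hsd3b7, a later step, had 11889, 11318, 10882 and 9884 in β-catenin tumours, against 835, 3501 and 2513 in p53 tumours, with p53 tumour 1 the lowest in both (log2 2.50 ± 0.40, adjusted p = 0.00362).

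Some genes of retinoid and aldehyde metabolism, of antioxidant defence and of heme synthesis rose in β-catenin tumours. Of retinoid and aldehyde genes 9 of 26 kept genes rose and 0 fell, with 8 called with each tumour left out. Rdh9, a retinol dehydrogenase, had 13459, 9636, 16441 and 7389 in β-catenin tumours, against 346, 289 and 343 in p53 tumours, with close p53 values (log2 5.10 ± 0.25, adjusted p = 4.37e-06). Rdh16 had 619.8, 1167, 587 and 704 in β-catenin tumours, against 16.3, 10.2 and 15.4 in p53 tumours (log2 5.65 ± 0.37, adjusted p = 3.99e-05). Aox3, aldehyde oxidase, had 10109, 6994, 16666 and 7186 in β-catenin tumours, against 61.1, 64.7 and 84.5 in p53 tumours (log2 7.09 ± 0.80, adjusted p = 0.000622). Aox1 had 2932, 3363, 6922 and 2158 in β-catenin tumours, against 110.0, 199 and 151 in p53 tumours (log2 4.54 ± 0.37, adjusted p = 0.000124). For all 4 genes the groups lay far apart relative to their spread. Of oxidative stress genes 11 of 28 kept genes rose (5 leaving out p53 tumour 2, 6 leaving out β-catenin tumour 3) and 0 fell. Ephx1, epoxide hydrolase, had 15047, 16698, 31035 and 13494 in β-catenin tumours, against 145, 379 and 722 in p53 tumours (log2 5.72 ± 0.59, adjusted p = 0.000367). Nqo1, a quinone reductase, had 1504, 302, 383 and 272 in β-catenin tumours, against 63.8, 31.8 and 23.1 in p53 tumours, highest in β-catenin tumour 1 (log2 3.66 ± 0.66, adjusted p = 0.00693).

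Of heme and iron genes 8 of 23 kept genes rose (5 leaving out p53 tumour 1 or 2) and 0 fell. Alas1, the limiting enzyme of heme synthesis in liver (chromosome 9, 106233455 to 106247954), had 27431, 16496, 20358 and 23311 in β-catenin tumours, against 2701, 3003 and 2995 in p53 tumours. The p53 tumours were within a narrow range and the β-catenin tumours were all several-fold above it (log2 2.89 ± 0.31, adjusted p = 0.000473). Ftl1, ferritin light chain, had 142437, 143340.4, 152882 and 136348 in β-catenin tumours, against 52425, 53627 and 58801 in p53 tumours (log2 1.39 ± 0.20, adjusted p = 0.00237), a small difference with little spread. Cp, ceruloplasmin, had 33700.5, 26139.6, 67367 and 30136 in β-catenin tumours, against 8696, 10687 and 9934 in p53 tumours (log2 1.91 ± 0.37, adjusted p = 0.0089). Tfrc, the transferrin receptor, had 7328, 14509.6, 14709 and 14939 in β-catenin tumours, against 20326, 24846 and 13300.0 in p53 tumours, overlapping (log2 -0.61 ± 0.28, adjusted p = 0.161).

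Secreted liver proteins were counted by class, beside the shares of all genes tested, 5.93% higher and 9.16% lower. Of coagulation factors 2 of 20 kept genes rose (1 leaving out β-catenin tumour 2 or 3 or p53 tumour 1, 2 or 3, 5 under TMM) and 0 fell, of complement genes 3 of 24 kept genes rose (5 leaving out p53 tumour 3) and 0 fell, of acute-phase genes 6 of 20 kept genes rose and 1 fell (Il1b, lost with any of 6 tumours left out, p53 tumour 2 giving the highest adjusted p = 0.124, and under TMM at adjusted p = 0.0544), and of apolipoprotein and transport protein genes 7 of 24 kept genes rose (3 leaving out p53 tumour 2) and 1 fell. Summed values were 594462 to 1035137 in β-catenin tumours and 513491 to 587648 in p53 tumours for coagulation genes and 395180.4 to 524094 in β-catenin tumours and 323496 to 381589.7 in p53 tumours for complement genes. They were 292736 to 469801 in β-catenin tumours and 158962 to 172985 in p53 tumours for acute-phase genes and 1617517 to 1973516 in β-catenin tumours and 765999 to 1220700.0 in p53 tumours for apolipoprotein and transport protein genes. The groups overlapped in none of these 4 sums. Hp, haptoglobin, had 97075, 114022, 225896 and 109032 in β-catenin tumours, against 11300.2, 11648 and 24844 in p53 tumours (log2 3.11 ± 0.41, adjusted p = 0.00144). F5, coagulation factor V, had 15990.2, 12935, 28619 and 13060.2 in β-catenin tumours, against 2011, 664 and 2113 in p53 tumours (log2 3.56 ± 0.44, adjusted p = 0.000917). Mbl2, a lectin that starts complement, had 5649, 2577, 1398 and 2978 in β-catenin tumours, against 255, 27.2 and 96.1 in p53 tumours (log2 4.97 ± 0.66, adjusted p = 0.00145). Apoa5, a regulator of plasma triglyceride, had 18023, 17173, 28424 and 16563 in β-catenin tumours, against 92.3, 639 and 2909 in p53 tumours, with a wide range from p53 tumour 1 to p53 tumour 3 (log2 5.13 ± 0.83, adjusted p = 0.00398). Pon1, which hydrolyses lipid peroxides on lipoproteins, had 8953, 10629.8, 15121 and 10382 in β-catenin tumours, against 43.5, 38.6 and 243 in p53 tumours (log2 7.20 ± 0.57, adjusted p = 0.000124). Serpina1e, one of a row of near-identical antitrypsin genes, fell and had 207, 315, 352 and 1709.8 in β-catenin tumours, against 29486, 16195 and 29990.2 in p53 tumours (log2 -5.77 ± 0.72, adjusted p = 0.00103). β-Catenin tumour 4 was the highest of its group for it and still below every p53 tumour.

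The major urinary proteins, pheromone carriers made by liver in a sex- and hormone-dependent way, were also counted. Of these 4 of 6 kept genes rose and 0 fell, while 5 of 11 were under the filter. Mup3 had 292, 483, 1029 and 2470.4 in β-catenin tumours, against 5.43, 4.54 and 75.3 in p53 tumours (log2 5.80 ± 0.98, adjusted p = 0.00523). Mup20 had 6359, 3218, 41609 and 17656 in β-catenin tumours, against 357, 174 and 1556 in p53 tumours (log2 4.59 ± 1.19, adjusted p = 0.0278). The call of Mup20 was lost with any of 4 tumours left out, p53 tumour 2 giving the highest adjusted p = 0.1. The order among β-catenin tumours differed, tumour 4 being highest for Mup3 and tumour 3 for Mup20. Of genes with a known sex difference in liver 8 of 17 kept genes rose (5 leaving out β-catenin tumour 3 or p53 tumour 2) and 1 fell. The male-type P450 gene Cyp2d9 had 5353, 9550.2, 15448 and 6821 in β-catenin tumours, against 903, 457 and 1078 in p53 tumours, without overlap (log2 3.49 ± 0.40, adjusted p = 0.000702). Sex is not given in the labels.

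Transcription factors of hepatocytes and nuclear receptors were set beside the shares of all genes tested, 5.93% higher and 9.16% lower. Of hepatocyte transcription factors 3 of 23 kept genes rose (1 leaving out p53 tumour 1 or 2, 5 under TMM) and 1 fell and of nuclear receptors 7 of 29 kept genes rose (4 leaving out β-catenin tumour 2, 3 or 4 or p53 tumour 1 or 2) and 1 fell. Neither gene that fell stayed called with each tumour left out, and no nuclear receptor gene was called lower under TMM. Rxrg, a retinoid X receptor, had 55.5, 329, 241 and 311 in β-catenin tumours, against 1.36, 1.13 and 6.15 in p53 tumours, lowest in β-catenin tumour 1 (log2 5.88 ± 1.10, adjusted p = 0.00799). Ahr, the receptor for dioxins that controls Cyp1a2, had 2525, 2003, 9626 and 2719 in β-catenin tumours, against 443, 945 and 682 in p53 tumours, highest in tumour 3 (log2 2.36 ± 0.52, adjusted p = 0.0155). The call of Ahr was lost with p53 tumour 1 at adjusted p = 0.0701 left out. Hnf4a, the central hepatocyte factor, had 42011, 31463, 36706 and 26549 in β-catenin tumours, against 27692, 11624 and 25892 in p53 tumours, where p53 tumour 1 exceeded β-catenin tumour 4 (log2 0.73 ± 0.34, adjusted p = 0.156, not called).

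**Figure D2:**
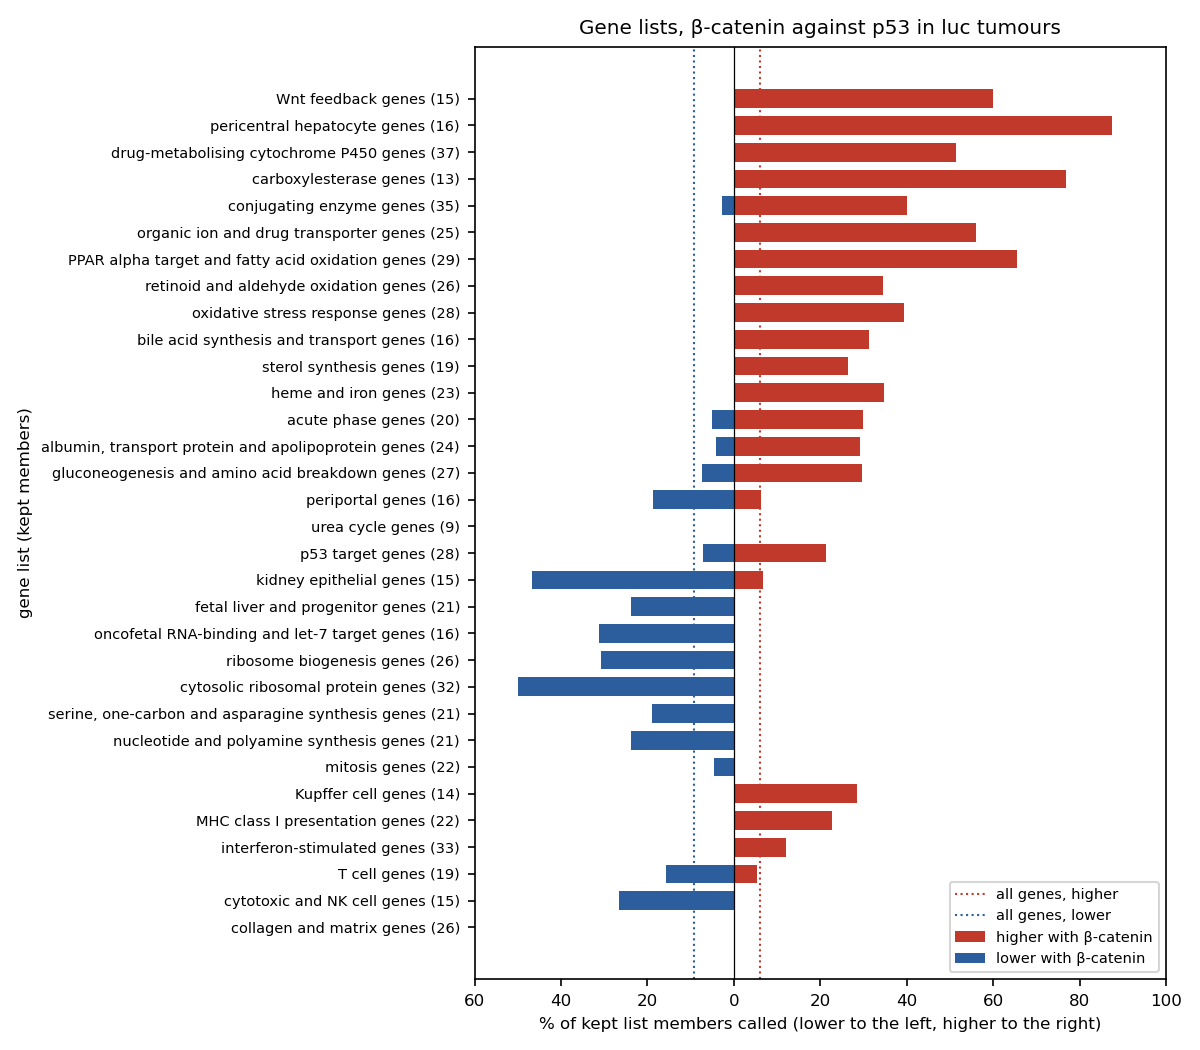
Share of the kept members of 32 gene lists called higher (red bars, to the right) or lower (blue bars, to the left) in β-catenin against p53 luc tumours, with the number of kept members in brackets. Dotted lines mark the shares over all genes, 5.93% higher and 9.16% lower.

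Trp53 and some of its targets rose in β-catenin tumours. Trp53 (chromosome 11, 69580348 to 69591873) had 4789.9, 4809, 3689 and 4637 in β-catenin tumours, against 1669, 2279.7 and 1646 in p53 tumours. The groups were far apart relative to their spread (log2 1.27 ± 0.20, adjusted p = 0.00346), and p53 tumours kept reads of the gene. Of p53 target genes 6 of 28 kept genes rose (3 leaving out β-catenin tumour 3 or p53 tumour 1) and 2 fell (0 leaving out β-catenin tumour 3 or p53 tumour 1 or 2, 1 leaving out β-catenin tumour 4 and under TMM). Ccng1, cyclin G1, had 3814, 3082, 2787 and 3012 in β-catenin tumours, against 1215, 1264 and 1033 in p53 tumours (log2 1.43 ± 0.22, adjusted p = 0.00322). Eda2r, a death receptor of the TNF family, had 236, 479.6, 574 and 475 in β-catenin tumours, against 0, 23.8 and 29.2 in p53 tumours (log2 5.53 ± 1.02, adjusted p = 0.00759). 9030617O03Rik, an older symbol of Dglucy, had 2975, 2676, 2412 and 2318 in β-catenin tumours, against 531, 409 and 475 in p53 tumours (log2 2.46 ± 0.36, adjusted p = 0.00267). Those 3 stayed called with each tumour left out. Zmat3, an RNA-binding protein, had 2148, 2129, 2576 and 1962 in β-catenin tumours, against 608, 937 and 772 in p53 tumours (log2 1.53 ± 0.37, adjusted p = 0.0225). The call of Zmat3 was lost with β-catenin tumour 3 at adjusted p = 0.0609, p53 tumour 1 at adjusted p = 0.0883 or p53 tumour 3 at adjusted p = 0.0526 left out. Pmaip1, the death gene Noxa, moved the other way with 65.7, 110.1, 82.4 and 144 in β-catenin tumours, against 1001, 810.2 and 198 in p53 tumours (log2 -2.49 ± 0.62, adjusted p = 0.0239). The call of Pmaip1 was lost with β-catenin tumour 3 at adjusted p = 0.0606, p53 tumour 1 at adjusted p = 0.0988 or p53 tumour 2 at adjusted p = 0.0874 left out. The best-known targets were not called: Cdkn1a, the inhibitor p21, had 4784, 3571, 4700.3 and 2256 in β-catenin tumours, against 3400.1, 2618 and 2033 in p53 tumours (log2 0.48 ± 0.39, adjusted p = 0.412). Mdm2, which degrades p53, had 4587, 2623, 3818 and 2846 in β-catenin tumours, against 1958, 2385 and 1781 in p53 tumours (log2 0.74 ± 0.23, adjusted p = 0.0534). Cdkn1a overlapped and Mdm2 did not.

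Of cell cycle brakes and cyclins 0 of 20 kept genes rose and 2 fell (0 leaving out p53 tumour 1, 1 leaving out β-catenin tumour 4 or p53 tumour 2). The share that fell, 10%, was near the 9.16% of all genes tested. Cdkn2a, which encodes p16 and p19Arf, had 22.7, 17.1, 62.7 and 17.6 in β-catenin tumours, against 2057, 1288 and 101 in p53 tumours, with p53 tumour 3 far below the other p53 tumours (log2 -4.60 ± 1.20, adjusted p = 0.0283). The call of Cdkn2a was lost with any of 5 tumours left out, p53 tumour 1 giving the highest adjusted p = 0.114. Cdk4 had 3979.7, 6095, 4159 and 6386 in β-catenin tumours, against 12263, 9557 and 9354 in p53 tumours (log2 -1.03 ± 0.24, adjusted p = 0.017). The call of Cdk4 was lost with p53 tumour 1 at adjusted p = 0.0749 left out. In the Myc network 1 of 12 kept genes rose and 2 fell (0 leaving out p53 tumour 1 or 2, 1 leaving out β-catenin tumour 3 or p53 tumour 3). That was 8.33% higher and 16.7% lower, against 5.93% and 9.16% of all genes tested. Mycl, of the Myc family, had 2027, 463, 1409.8 and 508 in β-catenin tumours, against 46.2, 72.6 and 42.3 in p53 tumours and was called with each tumour left out (log2 4.09 ± 0.66, adjusted p = 0.004). Mouse Myc had 147, 125, 363 and 295 in β-catenin tumours, against 54.3, 355 and 152 in p53 tumours, low and overlapping (log2 0.55 ± 0.76, adjusted p = 0.642). Its value need not count reads of the injected MYC, whose sequence the labels do not give.

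Genes of stem cell and fetal programmes were lower in β-catenin tumours for a few members. Of oncofetal RNA regulators 0 of 16 kept genes rose and 5 fell (1 leaving out β-catenin tumour 3 or p53 tumour 1, 2 leaving out p53 tumour 2 or 3 and under TMM, 3 leaving out β-catenin tumour 1, 2 or 4), and of fetal liver and progenitor genes 0 of 21 kept genes rose and 5 fell (1 leaving out p53 tumour 1 or 2, 2 leaving out β-catenin tumour 2, 3 or 4 or p53 tumour 3, 3 under TMM). Trim71, a ubiquitin ligase and repressor of embryonic stem cells (chromosome 9, 114511268 to 114564369), had 2.27, 17.1, 1.79 and 3.70 in β-catenin tumours, against 645, 980.4 and 1154 in p53 tumours. The groups lay far apart, β-catenin tumour 2 having the most of its group (log2 -7.42 ± 0.64, adjusted p = 0.000144). Lin28b, which blocks let-7 microRNAs, had 1.13, 67.4, 6.27 and 28.7 in β-catenin tumours, against 1017, 1843 and 301 in p53 tumours, spread in both groups (log2 -5.96 ± 1.61, adjusted p = 0.0321). The call of Lin28b was lost with any of 4 tumours left out, p53 tumour 2 giving the highest adjusted p = 0.104. Tff3, a trefoil peptide of mucous cells, had 3.40, 122, 22.4 and 11.1 in β-catenin tumours, against 3899.8, 4607 and 5107 in p53 tumours. β-Catenin tumour 2 had the most of its group (log2 -7.83 ± 1.47, adjusted p = 0.00807). Sox9, a factor of bile ducts and progenitors, had 15.9, 58.0, 52.8 and 137 in β-catenin tumours, against 888, 3759 and 505 in p53 tumours, highest in p53 tumour 2 (log2 -4.51 ± 1.04, adjusted p = 0.0179). The call of Sox9 was lost with p53 tumour 1 at adjusted p = 0.0565 or p53 tumour 2 at adjusted p = 0.0742 left out. Dlk1, an imprinted gene of fetal liver, had 20738, 546, 47.4 and 126 in β-catenin tumours, against 75597, 71401 and 30161 in p53 tumours. β-Catenin tumour 1 stood near the p53 range and the call (log2 -6.73 ± 2.05, adjusted p = 0.0485) was lost with any of 6 tumours left out, p53 tumour 1 giving the highest adjusted p = 0.133, and under TMM at adjusted p = 0.061. Afp, α-fetoprotein, had 279078, 10375, 65658 and 7674 in β-catenin tumours, against 17981, 9356 and 43285 in p53 tumours. Gpc3, a proteoglycan of fetal liver and liver cancer, had 20174, 1026, 852 and 1087 in β-catenin tumours, against 12487, 4667 and 1298 in p53 tumours. For both, β-catenin tumour 1 was the highest of the 7, and neither was called (Afp log2 0.84 ± 1.27, adjusted p = 0.676; Gpc3 log2 -1.01 ± 1.42, adjusted p = 0.651). The imprinted growth factor gene Igf2 had 587558, 469215, 272534 and 379328 in β-catenin tumours, against 551285, 138546 and 343231 in p53 tumours, overlapping (log2 0.47 ± 0.53, adjusted p = 0.567).

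Genes known from kidney were among those with the widest gap. Of the kidney genes 1 of 15 kept genes rose and 7 fell, with a median of -4.35, and 5 stayed called with each tumour left out, while 6 of 21 were under the filter. Cdh16, kidney cadherin (chromosome 8, 104601915 to 104624396), had 9.07, 0.853, 0.895 and 1.85 in β-catenin tumours, against 3909, 3134 and 499.6 in p53 tumours (log2 -9.17 ± 1.40, adjusted p = 0.00299). Pax8, a factor of kidney and thyroid, had 1.13, 6.83, 0 and 0.924 in β-catenin tumours, against 1194, 1261 and 314 in p53 tumours (log2 -8.36 ± 1.49, adjusted p = 0.00648). Cubn, cubilin, an endocytic receptor, had 30.6, 8.53, 8.95 and 19.4 in β-catenin tumours, against 5112, 3673 and 1527 in p53 tumours (log2 -7.61 ± 1.16, adjusted p = 0.00299). Kl, Klotho, had 3.40, 0, 0 and 0.924 in β-catenin tumours, against 489, 61.3 and 243 in p53 tumours (log2 -6.84 ± 1.06, adjusted p = 0.00323). In each of the 4, every p53 tumour was above every β-catenin tumour. Slc22a8, an organic anion carrier of kidney, had 21.5, 0, 0 and 0.924 in β-catenin tumours, against 604, 342 and 461 in p53 tumours, tumour 1 holding nearly all of the β-catenin values (log2 -7.48 ± 1.48, adjusted p = 0.00995). Aqp1, a water channel of kidney and of blood vessels, had 1738, 1476, 1618 and 1677 in β-catenin tumours, against 189, 1211 and 1407 in p53 tumours, which was not called (log2 1.24 ± 0.67, adjusted p = 0.221). The 1 that rose, Slc27a2, is a fatty acid activating enzyme of liver as well, and had 22840.2, 18496, 34617 and 25219 in β-catenin tumours, against 8959, 5196 and 14028 in p53 tumours (log2 1.51 ± 0.38, adjusted p = 0.0256). The call of Slc27a2 was lost with any of 4 tumours left out, p53 tumour 2 giving the highest adjusted p = 0.0954. The defining markers Pax2, Calb1 and Slc34a1 did not pass the filter on low values. Summed values of the list were 20698 to 36861 in β-catenin tumours, where Slc27a2 held most of each sum. In p53 tumours they were 15866 to 22663. Slc27a2 held 8959 of 22663 in p53 tumour 1, 5196 of 15866 in tumour 2 and 14028 of 20911 in tumour 3.

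Other genes had wide gaps too. Rhcg, an ammonium channel of kidney and epithelia, had 0, 1.71, 0 and 0 in β-catenin tumours, against 2733, 343 and 201 in p53 tumours. Only 2 reads were found in β-catenin tumours together, against 2577 in p53 tumours, a ratio of 1878 (95% interval 519 to 15513, counting error only). Onecut3, a transcription factor of the Hnf6 family, had 0, 0, 0 and 0 in β-catenin tumours, against 1379.6, 29.5 and 425 in p53 tumours. It was at least 214-fold lower in β-catenin tumours, against a floor of 3 reads per library, although p53 tumour 2 held little. Clrn3, a membrane protein gene, had 0, 0, 0 and 0 in β-catenin tumours, against 1047, 201 and 46.1 in p53 tumours and was at least 151-fold lower. Spink3, a trypsin inhibitor, had 9.07, 7.68, 19.7 and 21.3 in β-catenin tumours, against 2151, 7461 and 1249.8 in p53 tumours (log2 -7.58 ± 0.96, adjusted p = 0.00108), and p53 tumour 2 held the most. It lies on chromosome 18, one of the chromosomes described below for that tumour.

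Single genes of other signalling pathways were called. Of Notch and Hedgehog genes 1 of 21 kept genes rose (Ihh, lost with β-catenin tumour 3 at adjusted p = 0.0597, p53 tumour 1 at adjusted p = 0.051 or p53 tumour 2 at adjusted p = 0.0773 left out) and 4 fell (1 leaving out p53 tumour 2, 2 leaving out β-catenin tumour 2 or 4 or p53 tumour 1 or 3 and under TMM), and of growth factors and their receptors 3 of 32 kept genes rose (0 leaving out β-catenin tumour 3 or p53 tumour 1 or 2, 1 leaving out β-catenin tumour 1 or 2 or p53 tumour 3) and 4 fell (2 leaving out β-catenin tumour 2 or 4 or p53 tumour 1 or 2), the shares of all genes tested being 5.93% higher and 9.16% lower. Jag2, a Notch ligand (chromosome 12, 112907803 to 112929812), had 80.5, 114, 179.9 and 977 in β-catenin tumours, against 13045, 25359 and 12660.5 in p53 tumours. β-Catenin tumour 4 was the highest of its group and still far below every p53 tumour (log2 -6.32 ± 0.90, adjusted p = 0.00214). Erbb2, the HER2 receptor, had 113, 91.3, 109 and 94.3 in β-catenin tumours, against 1749, 2092 and 998 in p53 tumours, with narrow groups (log2 -3.91 ± 0.50, adjusted p = 0.0011). Kit, the stem cell factor receptor, had 189, 110.1, 339 and 171 in β-catenin tumours, against 1191, 4495 and 1440.4 in p53 tumours, highest in p53 tumour 2 (log2 -3.40 ± 0.67, adjusted p = 0.00964). Erbb3, the partner of Erbb2, moved the other way with 8481, 4790.4, 9324 and 4772 in β-catenin tumours, against 2885, 2383 and 3602 in p53 tumours (log2 1.16 ± 0.34, adjusted p = 0.0416). The call of Erbb3 was lost with any of 5 tumours left out, p53 tumour 2 giving the highest adjusted p = 0.13. Egfr had 1082, 899, 1696 and 1561 in β-catenin tumours, against 504, 927 and 1011 in p53 tumours and was not called (log2 0.70 ± 0.41, adjusted p = 0.258), nor was Met, the hepatocyte growth factor receptor, with 1847, 3120.2, 3016 and 3533 in β-catenin tumours, against 3920.2, 3393 and 4321 in p53 tumours (log2 -0.46 ± 0.26, adjusted p = 0.233). Of cell junction and epithelial genes 5 of 31 kept genes rose (3 leaving out p53 tumour 2) and 1 fell. Cldn3, a tight junction protein, had 2496, 5524, 6653 and 5389 in β-catenin tumours, against 633, 133 and 404 in p53 tumours (log2 3.86 ± 0.59, adjusted p = 0.00299). Pkp1, a desmosome protein of skin, had 63.5, 532, 921 and 456 in β-catenin tumours, against 0, 3.40 and 1.54 in p53 tumours, lowest of its group in β-catenin tumour 1 (log2 7.28 ± 1.08, adjusted p = 0.00267).

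**Figure D3:**
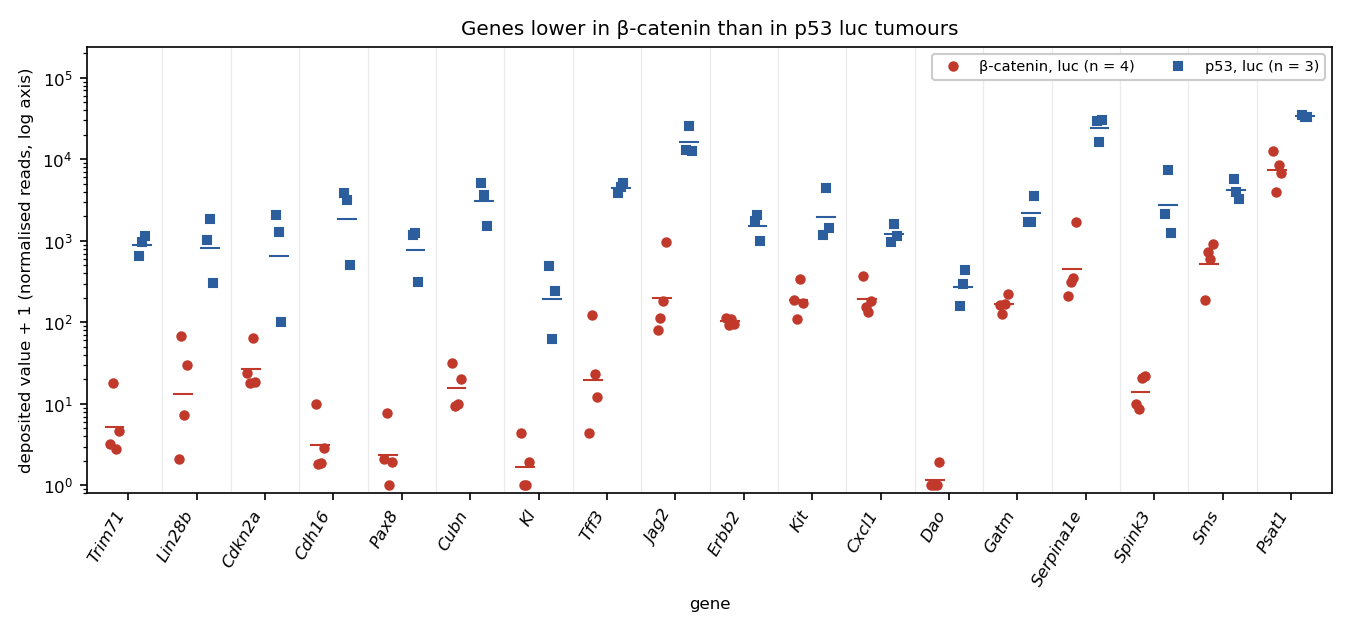
Values plus 1 of 18 genes lower in β-catenin tumours on a log axis, 1 red circle per β-catenin luc tumour (n = 4) and 1 blue square per p53 luc tumour (n = 3), with a line at each group's mean of log2 values. The red circles lie below the blue squares for every gene shown.

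Growth-related lists were read against the 9.16% of all genes tested that fell. Of ribosomal protein genes 0 of 32 kept genes rose and 16 fell (1 leaving out p53 tumour 1, 3 leaving out p53 tumour 2, 4 under TMM, 5 leaving out β-catenin tumour 3, 7 leaving out β-catenin tumour 4, 8 leaving out β-catenin tumour 2, 9 leaving out p53 tumour 3, 10 leaving out β-catenin tumour 1), with a median of -0.64. Of ribosome biogenesis genes 0 of 26 kept genes rose and 8 fell (0 leaving out p53 tumour 2, 1 leaving out p53 tumour 1, 2 leaving out β-catenin tumour 3, 3 leaving out p53 tumour 3, 4 leaving out β-catenin tumour 1 and under TMM), of nucleotide and polyamine genes 0 of 21 kept genes rose and 5 fell (1 leaving out β-catenin tumour 3 or p53 tumour 1 or 2, 2 leaving out β-catenin tumour 1 or p53 tumour 3, 3 leaving out β-catenin tumour 4 and under TMM), and of serine and one-carbon genes 0 of 21 kept genes rose and 4 fell (0 leaving out p53 tumour 1, 1 leaving out p53 tumour 2, 2 leaving out β-catenin tumour 1, 2, 3 or 4 and under TMM). Sms, spermine synthase, had 186, 719, 607 and 910.4 in β-catenin tumours, against 5670.5, 4031 and 3266 in p53 tumours and was called with each tumour left out (log2 -3.01 ± 0.47, adjusted p = 0.00333). Rps14 had 31038, 27672, 22941 and 27095 in β-catenin tumours, against 51838, 55335 and 45196 in p53 tumours (log2 -0.90 ± 0.18, adjusted p = 0.011), the 1 ribosomal protein gene called with each tumour left out, and it lies on chromosome 18. Psat1, of serine synthesis, had 12787, 3947, 8524 and 6807 in β-catenin tumours, against 35386, 33171 and 33151 in p53 tumours, with 3 nearly equal p53 values (log2 -2.20 ± 0.47, adjusted p = 0.0129). The call of Psat1 was lost with p53 tumour 1 at adjusted p = 0.0526 left out. Nolc1, a nucleolar chaperone, had 5608, 12192, 4897 and 11202 in β-catenin tumours, against 19298, 28527 and 21159.7 in p53 tumours (log2 -1.53 ± 0.34, adjusted p = 0.0162). The call of Nolc1 was lost with p53 tumour 2 at adjusted p = 0.0638 left out. In it, β-catenin tumours 1 and 3 were lower than 2 and 4, an order shared by Nop56, of the snoRNP core, with 3754, 9924, 3358 and 8689.5 in β-catenin tumours, against 15902, 17670.1 and 14117 in p53 tumours (log2 -1.46 ± 0.35, adjusted p = 0.0199). The call of Nop56 was lost with p53 tumour 1 at adjusted p = 0.0678 or p53 tumour 2 at adjusted p = 0.0687 left out. Of mitosis genes 0 of 22 kept genes rose and 1 fell and of DNA replication genes 0 of 24 kept genes rose and 2 fell (1 leaving out p53 tumour 1 or 2). Top2a, topoisomerase II, had 8369.6, 5541, 3629.7 and 7797 in β-catenin tumours, against 12692, 13642 and 12728 in p53 tumours (log2 -1.11 ± 0.32, adjusted p = 0.04). The call of Top2a was lost with any of 5 tumours left out, p53 tumour 2 giving the highest adjusted p = 0.106, and under TMM at adjusted p = 0.085. Mki67, the proliferation marker, had 16018, 5932, 4496 and 8006 in β-catenin tumours, against 16337, 9464 and 12558 in p53 tumours, where β-catenin tumour 1 was close to the highest p53 tumour (log2 -0.71 ± 0.41, adjusted p = 0.258, not called). Of oxidative phosphorylation genes 0 of 28 kept genes rose and 2 fell (0 leaving out β-catenin tumour 2, 3 or 4 or p53 tumour 1, 2 or 3 and under TMM, 1 leaving out β-catenin tumour 1). Of hypoxia genes 0 of 19 kept genes rose and 4 fell (0 leaving out p53 tumour 1, 1 leaving out β-catenin tumour 1 or p53 tumour 2, 2 leaving out β-catenin tumour 2, 3 or 4 and under TMM). Egln1, an oxygen sensor, had 1577, 1018, 1438 and 835 in β-catenin tumours, against 4288, 3316 and 2742 in p53 tumours (log2 -1.52 ± 0.32, adjusted p = 0.0124). The call of Egln1 was lost with p53 tumour 1 at adjusted p = 0.0588 left out.

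Immune and stromal lists, in tumours without the model antigen, were read against all genes tested, of which 5.93% rose and 9.16% fell. Shares differed between the lists, from 28.6% of Kupffer cell genes higher and 26.7% of cytotoxic and NK cell genes lower to no call among collagen genes. Of Kupffer cell genes 4 of 14 kept genes rose (1 leaving out β-catenin tumour 2 or 4 or p53 tumour 1 or 2, 2 leaving out β-catenin tumour 3, 8 leaving out p53 tumour 3) and 0 fell, with a median of 2.68 and summed values of 15825 to 21599 in β-catenin tumours and 9276 to 14571 in p53 tumours, without overlap. The resident macrophage receptor gene Marco had 187, 699.8, 116 and 498 in β-catenin tumours, against 1.36, 30.6 and 53.03 in p53 tumours (log2 4.22 ± 1.13, adjusted p = 0.0316). The call of Marco was lost with any of 4 tumours left out, p53 tumour 1 giving the highest adjusted p = 0.112. Cd163, a scavenger receptor, had 250.4, 447, 173 and 589.7 in β-catenin tumours, against 12.2, 29.5 and 133 in p53 tumours (log2 3.12 ± 0.86, adjusted p = 0.035). The call of Cd163 was lost with any of 6 tumours left out, p53 tumour 1 giving the highest adjusted p = 0.133. Nr1h3, the sterol receptor LXRα, which hepatocytes also make, had 4394, 4628, 4247 and 4366 in β-catenin tumours, against 2304, 1381 and 2544 in p53 tumours and was called with each tumour left out (log2 1.13 ± 0.24, adjusted p = 0.0133). Clec4f, the defining Kupffer cell lectin, had 839.7, 1304, 363 and 2872 in β-catenin tumours, against 5.43, 34.0 and 264 in p53 tumours, without overlap but not called (log2 4.73 ± 1.68, adjusted p = 0.0787). p53 tumour 3 held the most Kupffer marker signal of the p53 group in each of these 4 genes. Of general macrophage genes 0 of 24 kept genes rose and 0 fell in limma, against 6 at an unadjusted p under 0.05, 0 called in edgeR and 2 in DESeq2, with sums of 24526 to 37155 in β-catenin tumours and 21662 to 38402 in p53 tumours that overlapped, and Csf1r, the macrophage growth factor receptor, had 1088, 1838, 1965 and 2231 in β-catenin tumours, against 333, 624 and 1907 in p53 tumours (log2 1.23 ± 0.52, adjusted p = 0.125).

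Of cytotoxic and NK cell genes 0 of 15 kept genes rose and 4 fell (1 leaving out p53 tumour 1, 2 leaving out p53 tumour 3), with low summed values of 161 to 273 in β-catenin tumours and 429 to 1141 in p53 tumours, without overlap. None of these 4, Gzma included, stayed called with each tumour left out. Gzma and Gzmb, granule proteases, were called, as were Il2rb, an interleukin receptor chain, with 31.7, 71.7, 36.7 and 69.3 in β-catenin tumours, against 398, 162 and 404 in p53 tumours (log2 -2.57 ± 0.55, adjusted p = 0.0133, lost with p53 tumour 1 at adjusted p = 0.06 left out), and Eomes, a factor of NK and killer T cells, with 3.40, 5.97, 1.79 and 0 in β-catenin tumours, against 14.9, 36.3 and 27.7 in p53 tumours (log2 -3.08 ± 0.67, adjusted p = 0.0144). The call of Eomes was lost with p53 tumour 2 at adjusted p = 0.0592 left out. Gzmb had 7.93, 13.7, 4.48 and 13.9 in β-catenin tumours, against 118, 32.9 and 111 in p53 tumours (log2 -2.92 ± 0.65, adjusted p = 0.0155, lost with p53 tumour 1 at adjusted p = 0.0685 or p53 tumour 3 at adjusted p = 0.0507 left out), p53 tumour 2 being the lowest of its group. Of T cell genes 1 of 19 kept genes rose and 3 fell (0 leaving out β-catenin tumour 2, 3 or 4 or p53 tumour 1 or 2 and under TMM, 1 leaving out p53 tumour 3), the 1 that rose being Tcf7, already given as a Wnt gene. Cd3e, a defining chain of the T cell receptor, had 12.5, 16.2, 9.85 and 18.5 in β-catenin tumours, against 12.2, 30.6 and 43.0 in p53 tumours, overlapping (log2 -0.83 ± 0.72, adjusted p = 0.447). Cd8a had 12.5, 15.4, 2.69 and 7.39 in β-catenin tumours, against 36.7, 27.2 and 55.3 in p53 tumours, lower in all 4 β-catenin tumours but not called (log2 -2.11 ± 0.67, adjusted p = 0.0557). Of chemokines 0 of 25 kept genes rose and 1 fell, and that gene, Cxcl1, a neutrophil attractant (chromosome 5, 90891245 to 90893121), had 373, 154, 134 and 184 in β-catenin tumours, against 955, 1611 and 1148 in p53 tumours (log2 -2.63 ± 0.53, adjusted p = 0.0111). The groups did not overlap, while neutrophil genes summed to 2801 to 4541 in β-catenin tumours and 1221 to 6223 in p53 tumours and none of 14 was called in limma, against 2 at an unadjusted p under 0.05, 0 called in edgeR and 2 in DESeq2. Ccl5, a chemokine for T cells and dendritic cells, had 30.6, 37.6, 34.0 and 40.7 in β-catenin tumours, against 70.6, 42.0 and 141 in p53 tumours (log2 -1.06 ± 0.58, adjusted p = 0.233, not called). Of dendritic cell genes 0 of 18 kept genes rose and 1 fell. That member, Cadm1, an adhesion protein that other cells also make, had 259, 729.7, 609 and 983 in β-catenin tumours, against 2114, 1856 and 2742 in p53 tumours (log2 -1.93 ± 0.39, adjusted p = 0.011).

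Antigen presentation was examined next. Of MHC class I genes 5 of 22 kept genes rose (2 leaving out p53 tumour 2, 3 leaving out β-catenin tumour 1, 2 or 3 or p53 tumour 1) and 0 fell, and of MHC class II genes 0 of 12 kept genes rose and 0 fell in limma, against 0 at an unadjusted p under 0.05, 0 called in edgeR and 0 in DESeq2. Cd1d1, which presents lipids to NKT cells, had 1533, 3866, 3843 and 2589.7 in β-catenin tumours, against 515, 152 and 262 in p53 tumours (log2 3.33 ± 0.58, adjusted p = 0.00561). H2-K1, a classical class I gene, had 17532, 20421, 15419 and 24973 in β-catenin tumours, against 5919, 8309.7 and 13014 in p53 tumours (log2 1.16 ± 0.32, adjusted p = 0.0357). The call of H2-K1 was lost with any of 6 tumours left out, p53 tumour 1 giving the highest adjusted p = 0.139. H2-Q10, a secreted class I protein of liver with near-copies in its cluster, had 30650.0, 60991, 51985 and 43759 in β-catenin tumours, against 18603, 9362 and 18857 in p53 tumours (log2 1.61 ± 0.35, adjusted p = 0.0149). The call of H2-Q10 was lost with p53 tumour 2 at adjusted p = 0.061 left out. B2m, the shared light chain, had 9417, 12757, 12703 and 15922 in β-catenin tumours, against 12647, 6797 and 11966 in p53 tumours, overlapping (log2 0.31 ± 0.37, adjusted p = 0.597). Of interferon-induced genes 4 of 33 kept genes rose (0 leaving out β-catenin tumour 3 or p53 tumour 1 or 2, 1 leaving out β-catenin tumour 2) and 0 fell, Ifih1, an RNA sensor, among them with 1659, 1350.2, 1707 and 1377 in β-catenin tumours, against 592, 325 and 869 in p53 tumours (log2 1.46 ± 0.36, adjusted p = 0.0229). The call of Ifih1 was lost with β-catenin tumour 3 at adjusted p = 0.0606, p53 tumour 1 at adjusted p = 0.0661 or p53 tumour 2 at adjusted p = 0.0822 left out. Of checkpoint genes 2 of 20 kept genes rose (1 leaving out β-catenin tumour 1, 3 or 4 or p53 tumour 1 or 2) and 0 fell. The risen genes were Ido2, an enzyme of tryptophan breakdown that liver makes, with 300.3, 1319, 50.1 and 419 in β-catenin tumours, against 13.6, 0 and 9.22 in p53 tumours (log2 5.84 ± 1.20, adjusted p = 0.0118), and Icosl, a T cell costimulator, with 3586, 1201, 1962 and 1733 in β-catenin tumours, against 760.4, 212 and 788 in p53 tumours (log2 1.96 ± 0.52, adjusted p = 0.0304). The call of Icosl was lost with any of 5 tumours left out, p53 tumour 2 giving the highest adjusted p = 0.102. Collagen and matrix genes (26 kept) gave no call in limma, against 1 at an unadjusted p under 0.05, 1 called in edgeR and 1 in DESeq2, with sums of 113188 to 233550.0 in β-catenin tumours and 89747 to 180749 in p53 tumours. Of stellate cell and pericyte genes 0 of 18 kept genes rose and 1 fell (Rgs5, lost with any of 7 tumours left out, p53 tumour 3 giving the highest adjusted p = 0.122, and under TMM at adjusted p = 0.0746). Of endothelial genes 1 of 24 kept genes rose and 0 fell. The 1 that rose was Wnt2, given above among the Wnt ligands, and it did not stay called with each tumour left out. Both sums overlapped, 6178 to 14290.3 in β-catenin tumours and 10936 to 20327 in p53 tumours for stellate cells and 11246 to 23580.3 in β-catenin tumours and 7279.6 to 38101 in p53 tumours for endothelium.

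The tumours of a group were not alike. Correlations of log2 values over all tested genes ran from 0.942 to 0.982 between β-catenin tumours, from 0.938 to 0.955 between p53 tumours and from 0.863 to 0.936 between the groups, each pair sharing the same genes and differing in depth. The first principal component of the 7 tumours held 52.6% of the variance and split the drivers, with scores of 56.3 to 82.1 in β-catenin tumours and of -106 to -61.6 in p53 tumours. The second (15.5%) set β-catenin tumour 1 apart, at 83.9, against -37.9 to -20.6 for the other β-catenin tumours, with p53 tumour 1 at 45.8. The third (13.2%) had p53 tumour 2 at its end, at 65.5. Peg10, an imprinted gene derived from a retrotransposon, had 37373, 358, 101 and 589.7 in β-catenin tumours, against 1458, 384 and 7569 in p53 tumours (log2 -0.77 ± 1.68, adjusted p = 0.778). Aldh1a3, a retinoic acid synthesising enzyme, had 3679, 17.1, 17.9 and 12.9 in β-catenin tumours, against 1.36, 79.4 and 1.54 in p53 tumours (log2 3.05 ± 1.98, adjusted p = 0.311). Bdkrb1, a bradykinin receptor, had 2319.6, 8.53, 6.27 and 10.2 in β-catenin tumours, against 1.36, 4.54 and 4.61 in p53 tumours (log2 3.13 ± 1.68, adjusted p = 0.222). In each, β-catenin tumour 1 alone was high among β-catenin tumours, as it was for Gpc3 and Dlk1. Igfbp1, an insulin-regulated binding protein of liver, had 215812, 8829, 68251 and 9035 in β-catenin tumours, against 13522, 14291 and 10313 in p53 tumours (log2 1.39 ± 1.06, adjusted p = 0.387), high in tumours 1 and 3. Lingo3, a membrane protein gene, had 13.6, 1289.6, 6.27 and 811 in β-catenin tumours, against 5169, 4435 and 2469.5 in p53 tumours (log2 -5.22 ± 1.83, adjusted p = 0.0739), high in tumours 2 and 4.

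p53 tumour 2 differed from the other p53 tumours in several genes. Arhgap24, a GTPase regulator, had 36.3, 32.4, 58.2 and 98.9 in β-catenin tumours, against 209, 11033 and 178 in p53 tumours (log2 -3.84 ± 1.21, adjusted p = 0.0533). Ramp3, a receptor partner, had 119, 19.6, 45.7 and 26.8 in β-catenin tumours, against 61.1, 4479.9 and 75.3 in p53 tumours (log2 -2.71 ± 1.40, adjusted p = 0.205). Krt19, the bile duct keratin, had 15.9, 20.5, 30.4 and 90.6 in β-catenin tumours, against 84.2, 1031 and 17.7 in p53 tumours (log2 -1.88 ± 1.46, adjusted p = 0.394). Each was high in that 1 tumour and not called. Tumours 1 and 2 shared high values of the potassium channel gene Kcnq5, with 3.40, 1.71, 0 and 3.70 in β-catenin tumours, against 608, 859 and 5.38 in p53 tumours (log2 -5.77 ± 1.60, adjusted p = 0.0351). The call of Kcnq5 was lost with any of 6 tumours left out, p53 tumour 1 giving the highest adjusted p = 0.133.

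A shift of whole chromosomes was seen in the same tumour. For each tumour the deviation of each gene from its median over the 12 tumours of the set was centred on the tumour's own median, and the median per chromosome was taken, over genes with a mean value of at least 200. In p53 tumour 2 the median was 0.55 on chromosome 12 (401 genes, 83.0% of them above 0) and 0.43 on chromosome 18 (306 genes, 76.8% above 0). All 3 equal stretches of each chromosome were raised, at 0.59, 0.55 and 0.52 along chromosome 12 and at 0.37, 0.54 and 0.38 along chromosome 18. No median of a β-catenin luc tumour of set 1 passed 0.113 in size. In p53 tumour 1 the largest were 0.19 on chromosome X and -0.16 on chromosome 7. The lucOS tumours of set 1 also had raised or lowered chromosomes in p53 tumours, with the largest median per tumour between 0.23 and 0.39 in size, against 0.0744 to 0.113 in lucOS β-catenin tumours. In set 2 the same measure ran from 0.0455 to 0.341 in lucOS β-catenin tumours and from 0.0765 to 0.295 in lucOS p53 tumours. It ran from 0.0848 to 0.117 in the luc β-catenin tumours of set 2. DNA copy number was not measured.

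Calls were counted on these chromosomes and elsewhere. Of tested genes on chromosome 12, 13.5% were called lower, and on chromosome 18 19.7%, against 8.70% elsewhere. Without p53 tumour 2, which also lowers the number of p53 tumours to 2, the shares were 4.25%, 5.46% and 2.95%. The median difference on chromosome 12 was -0.38 with all tumours and -0.22 without p53 tumour 2, on chromosome 18 -0.41 and -0.27, and elsewhere -0.18 and -0.16. Dlk1, Jag2 and Serpina1e lie on chromosome 12, and Pmaip1, Spink3 and Rps14 on chromosome 18. Jag2, Serpina1e, Spink3 and Rps14 were called without p53 tumour 2 as well. The part of the chromosome shift in single calls was not tested.

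**Figure D4:**
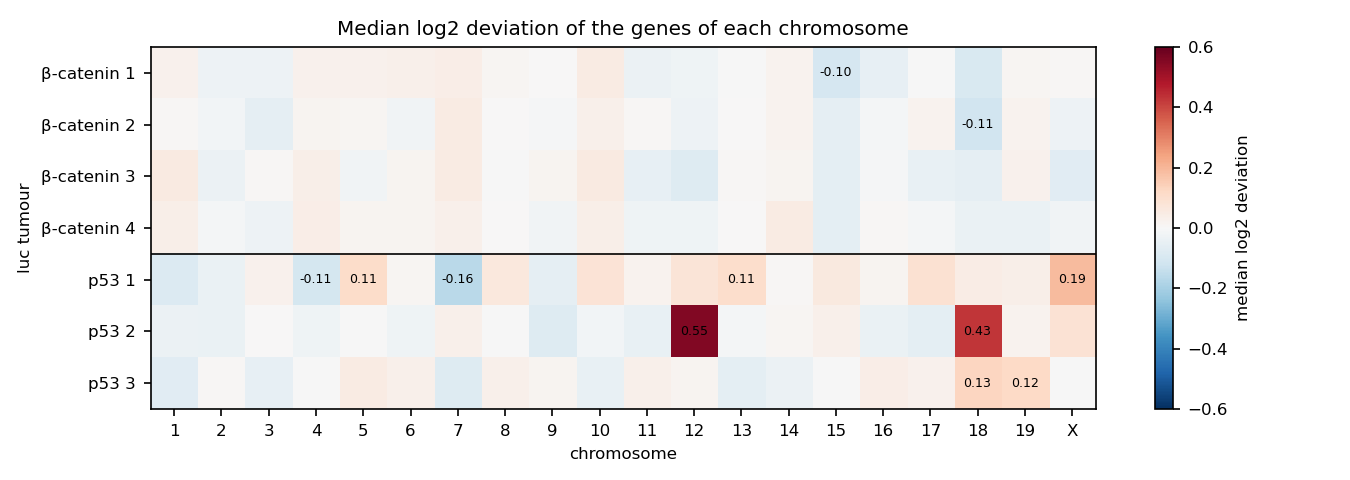
Median log2 deviation of the genes of each chromosome (columns) in each luc tumour (rows, β-catenin above p53), red for higher and blue for lower, with values of at least 0.1 in size written in. Chromosomes 12 and 18 of p53 tumour 2 carry the 2 highest values, 0.55 and 0.43.

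The same difference was set beside that of tumours with the antigen, which share no tumour with the comparison above. The lucOS tumours of set 1 were in the same fit, so calls there and in luc tumours use 1 shared spread per gene. Set 2 was fitted alone. In set 1 (2 lucOS β-catenin and 3 lucOS p53 tumours) 2384 of the 2431 called genes had the same direction, 931 of 956 higher and 1453 of 1475 lower, where 41.4% of all genes were higher. In set 2 (3 and 4 tumours) the same direction was seen for 2277 of 2365, 884 of 927 and 1393 of 1438, where 38.8% of all genes were higher. Of the genes that rose, 231 of 956 (24.2%) were also called higher in set 1 lucOS tumours, where 1.62% of all genes tested were. In set 2 it was 460 of 927 (49.6%), against 6.06% of all genes. Of those that fell, 318 of 1475 (21.6%) were called lower in set 1, against 2.59% of all genes. In set 2 it was 587 of 1438 (40.8%), against 10.9%. As the number called changed, the number with the same direction in set 1 was 804 when p53 tumour 1 was left out, 979 for p53 tumour 2, 1180 for β-catenin tumour 3 and 1585 for β-catenin tumour 2. In set 2 it was 775 for p53 tumour 1, 944 for p53 tumour 2 and 1145 for β-catenin tumour 3. The interaction, the driver difference with luc minus that with lucOS in set 1, called no gene in limma or in edgeR, and 17 in DESeq2. Its lowest adjusted p in limma was 0.973, and 436 genes (2.71%) had an unadjusted p under 0.05.

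For single genes the log2 differences in lucOS tumours are set beside those in luc tumours. For Axin2 they were 4.04 in set 1 and 6.28 in set 2, for Lgr5 4.32 in set 1 and 6.51 in set 2 and for Notum 5.50 in set 1 and 6.05 in set 2, against 6.82, 6.43 and 8.36 in luc tumours. Glul had 1.14 in set 1 and 0.61 in set 2, against 3.79. Trim71 had -8.24 in set 1 and -6.51 in set 2, against -7.42, and Cdh16 had -7.32 in set 1 and -10.30 in set 2, against -9.17. Jag2 had -4.74 in set 1 and -3.21 in set 2, against -6.32, and Erbb2 had -3.01 in set 1 and -3.54 in set 2, against -3.91. For these genes the direction was the same in all 3 comparisons, and the value of Glul was lower in lucOS tumours, a difference that the interaction did not call. Pck1 had -0.15 in set 1 and 3.25 in set 2, against 4.17, so that in set 1 it lay near 0.

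List medians in lucOS tumours are set beside those in luc tumours in the same way. The pericentral median was 2.72 in set 1 lucOS and 3.25 in set 2 lucOS tumours, against 4.36 in luc tumours, and that of P450 genes 1.45 and 2.40, against 2.61. Kidney genes had -2.53 and -3.29, against -4.35. Kupffer cell genes had 0.09 and 0.98, against 2.68. The MHC class II median was -1.24 and -2.22, against 0.15. In set 2 lucOS tumours 9 of its genes were called lower, and none in set 1 lucOS tumours or in the luc comparison. The interferon median was -0.28 and -1.62, against 0.60. T cell genes had -1.26 and -2.11, against -0.83, and cytotoxic and NK cell genes -1.54 and -2.70, against -1.33. Whether the lists differ between luc and lucOS tumours was not tested as a list.

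**Figure D5:**
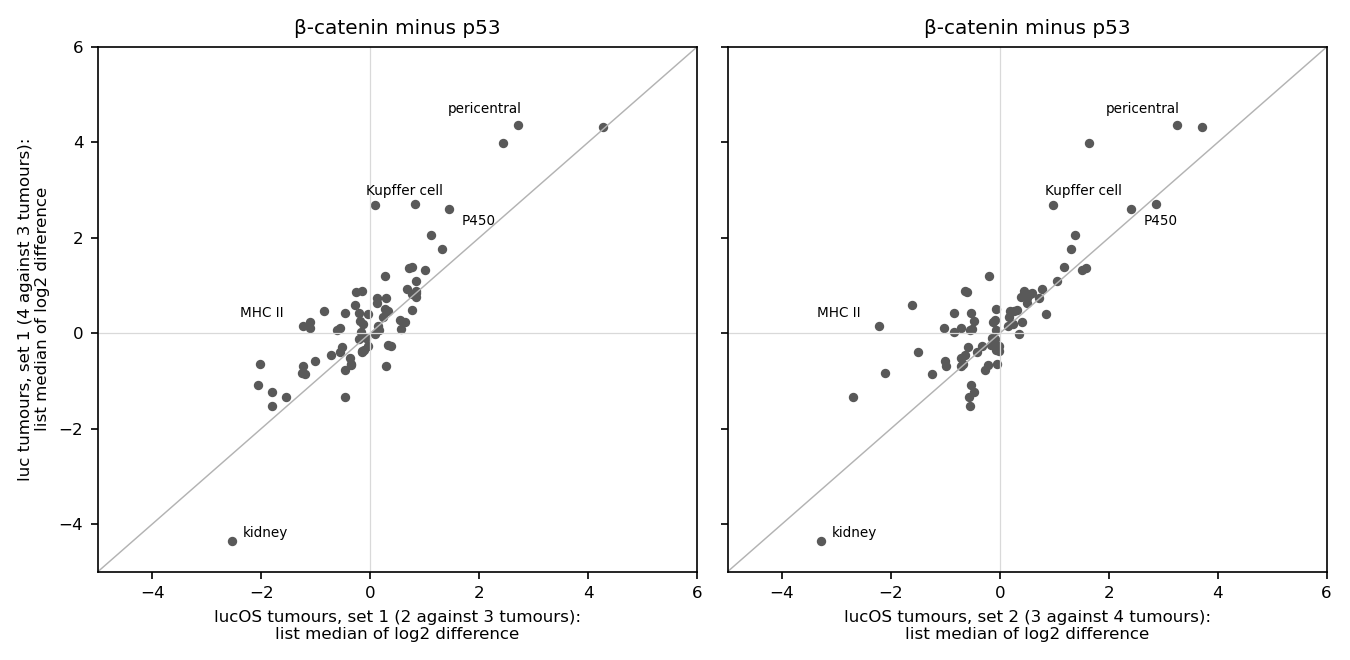
Median log2 difference (β-catenin minus p53) of each gene list in luc tumours (vertical axis, 4 against 3 tumours) against that in lucOS tumours of set 1 (left, 2 against 3 tumours) and set 2 (right, 3 against 4 tumours), 1 point per list with a line of equality. Pericentral, P450 and kidney lists lie away from 0 on both axes, while MHC class II lies near 0 in luc tumours and at -1.24 and -2.22 in lucOS tumours.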

How the data were processed

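RNA of whole mouse liver tumours was sequenced. Per the labels' protocols, RNA was extracted with TRIzol, treated with DNase I, cleaned on RNeasy columns and made into TruSeq libraries. TopHat2, featureCounts, DESeq2 and mm10 appear, per the submitters' processing notes, and their versions and settings, strand use included, are not given in the sources used here. The authors deposited 1 table per set of normalized signal per transcript, in which each column is whole reads divided by 1 factor. Whole reads were recovered from it (100% of values within 0.01 reads of a whole number). Without strand, antisense and overlapping genes cannot be told apart, and near-identical genes (antitrypsins, major urinary proteins, P450 families, class I genes) can share reads.

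The set 1 table held 33068 transcripts of 24063 genes. For the 4914 genes with more than 1 transcript the one with the highest mean was used. For 53 rows the symbol had turned into a date and was restored from the accession. In set 2 (24019 genes) 27 such rows were left out. No value column lacked a sample.

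Log2(value + 1) of all 12 tumours of set 1 was fitted in limma 3.58.1 (R 4.3.3, trend) with 4 group means, over the 16108 genes with at least 10 in at least 2 tumours. Fold changes of low genes are understated on that scale. Set 2 was fitted alone (at least 10 in at least 3 of its 10 tumours). The fit was also run on simulated data with 200 changed genes, and the outcome is not given here. Alternatives were TMM factors, median centring, edgeR 4.0.16 and DESeq2 1.42.0 on the recovered reads, pseudocounts of 0.1 and 10, other filters, summed transcripts, luc tumours alone, and each tumour left out. Sequences, names and positions are RefSeq's (GRCm38.p6). Of 1466 genes in 73 lists, 1463 matched and 1358 were tested.

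Named genes are Myc, Ctnnb1 and Trp53, the 5 called members of each list with the largest difference (the 3 with the highest mean where fewer than 3 are called), limiting enzymes, receptors and defining markers of a list, the 15 genes per direction with the largest difference, no overlap and a mean of at least 200, and the 10 genes per group with the largest spread. Not all that the rule names are printed. Abcg2, Aldh1b1, Aqp1, Ccl5, Ccng1, Cyp2c29, Cyp2c50, Cyp2d9, Ehhadh, Ftcd, Gldc, Gstp1, Il1b, Lect2, Nkd1, Oat, Pdk4, Rgn, Rnf43, Slc10a1, Slc1a4, Slc22a7, Slc27a2, Sult1c2, Tat, Tnfrsf19, Ugt1a1, Zmat3 and Znrf3 were chosen after their values were seen. The tumours compared and the lists were chosen with earlier results of these data known. A few genes are not reported here.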

Additional observations from a re-analysis of the deposited data

Results flagged for a closer look

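For each of the 186 genes given with values or a call, the 4 β-catenin tumours were checked for a tumour far from the others on the log2 scale. The gap to the nearest tumour was divided by the range of the 4, and a share above Dixon's critical value for 4 samples was listed. Chance alone lists about 1 in 20 groups taken at random, and 15 genes were listed. That rate does not apply here, since some genes were named for a large spread within the β-catenin tumours. Aldh1a3 and Bdkrb1 are among those. The p53 group of 3 tumours was not checked.

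β-Catenin tumour 1 was the highest for Aldh1a3 (share 0.945), Bdkrb1 (0.925) and Gpc3 (0.923), whose values are given above, and for Rad51b (0.929), a gene of DNA repair by recombination with 977, 799, 809 and 798 in β-catenin tumours, against 191, 443 and 380.5 in p53 tumours. It was the lowest for the receptor gene Tfrc (0.959) and the transporter gene Slc7a1 (0.88). β-Catenin tumour 3 was the highest for Apoa5 (0.844) and the lowest for Nkd1 (0.908), Sds (0.845) and Trp53 (0.862). β-Catenin tumour 4 was the highest for Cyp2a4 (0.839) and the lowest for Tbx3 (0.964). For Dao (1.0), Tff2 (1.0) and Rhcg (1.0) the other 3 β-catenin tumours were at 0, and the tumour that stood apart held few reads, β-catenin tumour 4 for Dao and Tff2 and β-catenin tumour 2 for Rhcg. Tumour 1 accounts for 6 of the 15. The cause was not tested.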

How the results depend on the processing

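The number of genes called in luc tumours, 2431, was 1906 (1227 higher, 679 lower) with TMM factors, 1968 (1068 and 900) with each tumour centred on its median, 1785 (1110 and 675) in edgeR, 3303 (1881 and 1422) in DESeq2, 2380 and 2329 with a pseudocount of 0.1 and 10, 2216 with no filter, 2416 with a filter of 50, 2378 with transcripts summed and 2554 with only the 7 luc tumours fitted. It ran from 812 to 1964 with 1 tumour left out, which also leaves fewer tumours to test. In the same runs the genes with the same direction in lucOS tumours ran from 804 to 1943 in set 1 and from 775 to 1863 in set 2, and the genes of the lists that were called, 327, from 169 to 283. The interaction called 0 genes in every setting except DESeq2, which called 17, and from 0 to 0 with 1 tumour left out.

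Of 143 called genes that are named, none changed direction in any setting. Genes whose groups do not overlap, as 2390 of the 2431 called, cannot change direction when 1 tumour is left out. For them those runs could show no reversal. The call was lost for 8 under TMM, 6 with centring, 13 in edgeR, 2 in DESeq2, 2 with a pseudocount of 10, 6 with no filter, 1 with a filter of 50, 1 with summed transcripts, 2 with only luc tumours, 46 when p53 tumour 1, 38 when p53 tumour 2, 30 when β-catenin tumour 3 and 18 to 21 when any other tumour was left out. Among genes not called, the log2 difference changed sign for 5. With 1 tumour left out it ran from -0.159 to 1.569 for Afp, from -0.082 to 0.914 for Igf2, from -0.140 to 1.203 for Myc and from -2.539 to 0.340 for Peg10, which was 1.824 in edgeR. Gpc3 had 0.115 in edgeR and 0.098 in DESeq2. The cause was not tested. With 3 p53 tumours, 1 tumour decides many calls, and log2 differences of genes near 0 in a group depend on the added 1 and are no bounds. No paired analysis was possible because the labels give the groups no shared replicate numbers.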

Other observations

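Further gene groups are given here for luc tumours of set 1, with limma's adjusted p. The shares of all genes tested were 5.93% higher and 9.16% lower. Of amino acid transporter genes 3 of 21 kept genes rose (1 leaving out β-catenin tumour 3 or p53 tumour 1 or 2) and 3 fell, Slc1a2, already given as a pericentral gene, being among the risen. Slc7a1, which carries arginine and lysine into cells, had 1091, 1896, 1984 and 2045 in β-catenin tumours, against 5065, 9137 and 5318 in p53 tumours, and no β-catenin tumour reached the p53 range (log2 -1.88 ± 0.38, adjusted p = 0.0113). Slc3a1, part of the carrier of cystine and basic amino acids, had 2161, 1342, 1075 and 1157 in β-catenin tumours, against 7624, 3161 and 4791 in p53 tumours, also without overlap (log2 -1.82 ± 0.35, adjusted p = 0.00899). Slc13a3, a carrier of dicarboxylates, had 6997, 693, 1160.1 and 809 in β-catenin tumours, against 95.1, 236 and 239.8 in p53 tumours, highest in β-catenin tumour 1 (log2 3.05 ± 0.81, adjusted p = 0.0297). The call of Slc13a3 was lost with any of 4 tumours left out, p53 tumour 1 giving the highest adjusted p = 0.115. Of other hepatocyte enzyme genes 6 of 30 kept genes rose (3 leaving out p53 tumour 2) and 2 fell (1 leaving out p53 tumour 1). Mgst1, a microsomal glutathione transferase, had 31782, 36577, 39828 and 37408 in β-catenin tumours, against 6855, 2995 and 8136 in p53 tumours, with close β-catenin values (log2 2.72 ± 0.33, adjusted p = 0.000917). Ftcd, which breaks down histidine products, fell and had 6039, 2274, 866 and 2658 in β-catenin tumours, against 20459, 11616 and 13368 in p53 tumours, lowest in β-catenin tumour 3 (log2 -2.63 ± 0.56, adjusted p = 0.0134). The call of Ftcd was lost with p53 tumour 1 at adjusted p = 0.0616 left out.

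Of glycolysis and glucose transport genes 2 of 31 kept genes rose (1 leaving out β-catenin tumour 1, 2 or 3 or p53 tumour 1, 2 or 3) and 3 fell (0 leaving out β-catenin tumour 2 or 4 or p53 tumour 1 or 2, 1 leaving out β-catenin tumour 1 or 3 or p53 tumour 3). These shares, 6.45% and 9.68%, were near those of all genes tested, 5.93% higher and 9.16% lower. So were those of the DNA repair genes below, 4.55% higher and 9.09% lower. Pfkfb1, a liver enzyme that controls glycolysis through a signal sugar phosphate, had 3207, 1438, 2356 and 1554 in β-catenin tumours, against 240.3, 168 and 312 in p53 tumours, without overlap (log2 3.12 ± 0.50, adjusted p = 0.00392). Of unfolded protein response genes 2 of 17 kept genes rose (1 leaving out p53 tumour 1) and 0 fell, and Edem1, which sends misfolded glycoproteins to degradation, had 9289.7, 6230.2, 8189.5 and 5330.0 in β-catenin tumours, against 1989, 2425 and 3394 in p53 tumours (log2 1.48 ± 0.27, adjusted p = 0.00706). Of DNA repair genes 1 of 22 kept genes rose (Rad51b, lost with β-catenin tumour 1 at adjusted p = 0.0501, β-catenin tumour 3 at adjusted p = 0.0561 or p53 tumour 1 at adjusted p = 0.0949 left out) and 2 fell (0 leaving out p53 tumour 1, 1 leaving out β-catenin tumour 1 or 3 or p53 tumour 3 and under TMM). Of airway and gut epithelial genes 1 of 10 kept genes rose (Lgals4, lost with p53 tumour 1 at adjusted p = 0.0623 left out) and 2 fell, and Tff2, a trefoil peptide of the stomach, had 0, 0, 0 and 2.77 in β-catenin tumours, against 36.7, 11.3 and 50.7 in p53 tumours, low in both groups (log2 -4.37 ± 0.84, adjusted p = 0.00886). The β-catenin tumours held 3 reads of it together, against 103 in the p53 tumours, a ratio of 50.03 (95% interval 16.6 to 247, counting error only) higher in p53 tumours. Of bile duct epithelial genes 0 of 15 kept genes rose and 3 fell (1 leaving out p53 tumour 1 or 2), Sox9 and Tff3 given above among them. Of B and plasma cell genes 0 of 11 kept genes rose and 1 fell (Mzb1, lost with any of 7 tumours left out, p53 tumour 1 giving the highest adjusted p = 0.117, and under TMM at adjusted p = 0.0628), of germ cell genes 0 of 4 kept genes rose and 1 fell (Piwil2, lost with any of 7 tumours left out, p53 tumour 1 giving the highest adjusted p = 0.121, and under TMM at adjusted p = 0.0628), of circadian clock genes 0 of 16 kept genes rose and 1 fell (Bhlhe41, lost with any of 6 tumours left out, p53 tumour 2 giving the highest adjusted p = 0.114), and of imprinted genes 1 of 25 kept genes rose and 1 fell, these being Slc22a3 and Dlk1 given above. No insulin-like growth factor gene of 17 was called in limma, against 4 at an unadjusted p under 0.05, 2 called in edgeR and 5 in DESeq2. No YAP target gene of 14 was called in limma, against 3 at an unadjusted p under 0.05, 0 called in edgeR and 1 in DESeq2. Red blood cell genes (12 kept) gave no call in limma, against 0 at an unadjusted p under 0.05, 0 called in edgeR and 0 in DESeq2, and NKG2D and NK receptor ligand genes (5 kept) none, against 2 at an unadjusted p under 0.05, 1 called in edgeR and 1 in DESeq2.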
